A study of Hansenula anomala with 15 samples.

Results

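The comparison described here sets broth sampled at 32 h of a yeast fermentation against broth sampled at 16 h. The yeast was Wickerhamomyces anomalus, entered under the older name Hansenula anomala, and the RNA came from the whole broth, in a series on the volatile compounds of apricot fermentation. It used 6 of the 15 libraries, 3 biological replicates at each of the 2 time points, and described all genes through the KOG (orthologous group), KEGG (pathway) and GO (function and location) columns of the deposited table. Each library came from polyadenylated RNA, and the other libraries, from 0, 48 and 64 h, entered the fit to estimate the spread. Time is the only variable that the labels give, and strain, medium, sugar level, temperature and cell density are not given in the sources used here. Only yeast genes were counted, so other organisms of the broth were not analysed here. In bulk RNA, fewer cells of a kind and less RNA per cell cannot be told apart.

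Yeasts growing on sugar take up sucrose and hexoses, split sucrose outside the cell with invertase, and pass hexoses through glycolysis to pyruvate, which pyruvate decarboxylase and alcohol dehydrogenase turn into ethanol. When sugar runs low, Saccharomyces cerevisiae is known to lower the transcripts of that route and to raise those of gluconeogenesis and the glyoxylate cycle, which build sugar phosphates out of ethanol and acetate. The Snf1 kinase and the cyclic AMP-dependent kinase are known to control that change, and growth functions such as ribosome assembly fall with it. Roles given below are those of Saccharomyces cerevisiae homologues, and gene symbols rest on homology. Genes without a symbol are named by locus tag and the description in the files.

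Library totals were 19.0 to 25.9 M counts at 32 h and 24.4 to 38.6 M counts at 16 h, and 6355 to 6396 and 6346 to 6401 genes had at least 1 count. The libraries differed in composition: the 10 most abundant genes took 25.3% to 31.7% of the counts at 32 h and 46.0% to 52.5% at 16 h. TMM scaling factors were accordingly 1.01 to 1.41 at 32 h and 0.389 to 0.637 at 16 h. A pair of libraries stood apart. Replicate 2 of 16 h had Spearman's rho of 0.742 and 0.708 with replicates 1 and 3 of 16 h across 4453 genes, against 0.962 between those. Replicate 3 of 32 h had 0.869 and 0.886 with its replicates 1 and 2, against 0.981 between those, and 0.965 with 48 h replicate 2. Outside the comparison, 64 h replicate 3 had 0.951 with 32 h replicate 2, against 0.837 and 0.756 with 64 h replicates 1 and 2, and it entered the estimate of spread. All were kept under the labels given, and whether samples were exchanged or taken at other times was not tested. Levels below are CPM, counts per 1000000 of the TMM-scaled library, in the order of replicates 1, 2 and 3. A floor of 3 counts came to 0.0831 to 0.156 CPM at 32 h and 0.122 to 0.220 CPM at 16 h, which covers counting error only.

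Of 6327 genes tested, 889 (14.1%) were higher and 1118 (17.7%) lower at 32 h by edgeR's quasi-likelihood test with Benjamini-Hochberg adjustment, at a threshold of 0.05. These are called risen and fallen below, and 4320 genes did not pass. The median log2 fold change over all genes tested was -0.06. Scaling by library size alone moved that median by 1.16, to 1.10, and gave 2809 risen genes (44.4%) and 285 fallen genes (4.50%), so that the risen share of all calls was 44.3% under TMM and 90.8% under library size scaling. All 889 risen genes also rose with library size scaling. Of the 1118 fallen genes, 285 also fell, 946 kept a negative fold change and 0 rose. Each list below therefore carries its median and its counts under both scalings. A count that moved by over 1.5 times when any of the 6 libraries was left out is given beside it. Changes are relative to the median of all genes.

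With TMM scaling, KOG classes of chromatin, replication and division held more risen than fallen genes and classes of metabolism held more fallen than risen genes, while with library size scaling risen genes outnumbered fallen genes in all of them. Of 87 genes of chromatin structure and dynamics, 26 rose, 12 fell and 49 did not pass. The chromatin structure and dynamics list had a median log2 change of 0.27 with TMM and 1.40 with library size scaling, where 49 rose and 4 fell. For the chromatin structure and dynamics list counts moved to 7 fallen without 16 h replicate 3 or 32 h replicate 2 and 5 fallen without 32 h replicate 1. Replication, recombination and repair had 160 genes tested, of which 40 rose, 18 fell and 102 did not pass. The replication, recombination and repair list had a median log2 change of 0.33 with TMM and 1.44 with library size scaling, where 83 rose and 5 fell. In cell cycle control and cell division, with 148 genes, 35 rose, 19 fell and 94 did not pass. The cell cycle control and cell division list had a median log2 change of 0.38 with TMM and 1.54 with library size scaling, where 80 rose and 4 fell. For the cell cycle control and cell division list counts moved to 11 fallen without 32 h replicate 1 and 10 fallen without 32 h replicate 2. The class of protein modification, turnover and chaperones had 402 genes, of which 81 rose, 40 fell and 281 did not pass. The protein modification, turnover and chaperones list had a median log2 change of 0.22 with TMM and 1.41 with library size scaling, where 242 rose and 9 fell. For the protein modification, turnover and chaperones list counts moved to 49 risen without 16 h replicate 3, 52 risen without 32 h replicate 2, 23 fallen without 32 h replicate 1 and 25 fallen without 32 h replicate 2. In these classes the risen share lay between 20.1% and 29.9%, above the 14.1% of all genes.

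Classes of small-molecule metabolism had negative medians with TMM and positive medians with library size scaling. In coenzyme transport and metabolism, 9 rose, 30 fell and 52 did not pass of 91 genes. The coenzyme transport and metabolism list had a median log2 change of -0.59 with TMM and 0.55 with library size scaling, where 28 rose and 8 fell. For the coenzyme transport and metabolism list counts moved to 17 risen without 16 h replicate 2. Nucleotide transport and metabolism held 75 genes, of which 11 rose, 23 fell and 41 did not pass. The nucleotide transport and metabolism list had a median log2 change of -0.62 with TMM and 0.63 with library size scaling, where 26 rose and 8 fell. For the nucleotide transport and metabolism list counts moved to 7 risen without 16 h replicate 3 and 6 risen without 32 h replicate 2. For carbohydrate transport and metabolism the numbers over 219 genes were that 30 rose, 66 fell and 123 did not pass. The carbohydrate transport and metabolism list had a median log2 change of -0.34 with TMM and 0.92 with library size scaling, where 93 rose and 35 fell. Lipid transport and metabolism followed, with 178 genes, of which 15 rose, 47 fell and 116 did not pass. The lipid transport and metabolism list had a median log2 change of -0.34 with TMM and 0.82 with library size scaling, where 65 rose and 15 fell. For the lipid transport and metabolism list counts moved to 9 risen without 16 h replicate 1 and 8 risen without 32 h replicate 2. The fallen share in these classes was 26.4% to 33.0%, against 17.7% over all genes. Translation had, with TMM scaling, 6.85% of its 336 genes risen and 13.7% fallen, both below the shares over all genes. Of its genes, 23 rose, 46 fell and 267 did not pass. Its median log2 change was -0.06 with TMM and 1.14 with library size scaling, where 166 rose and 3 fell. Its counts moved to 6 risen without 16 h replicate 3 or 32 h replicate 1 and 8 risen without 32 h replicate 2. They also moved to 25 fallen without 32 h replicate 1 and 27 fallen without 32 h replicate 2.

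**Figure D1:**
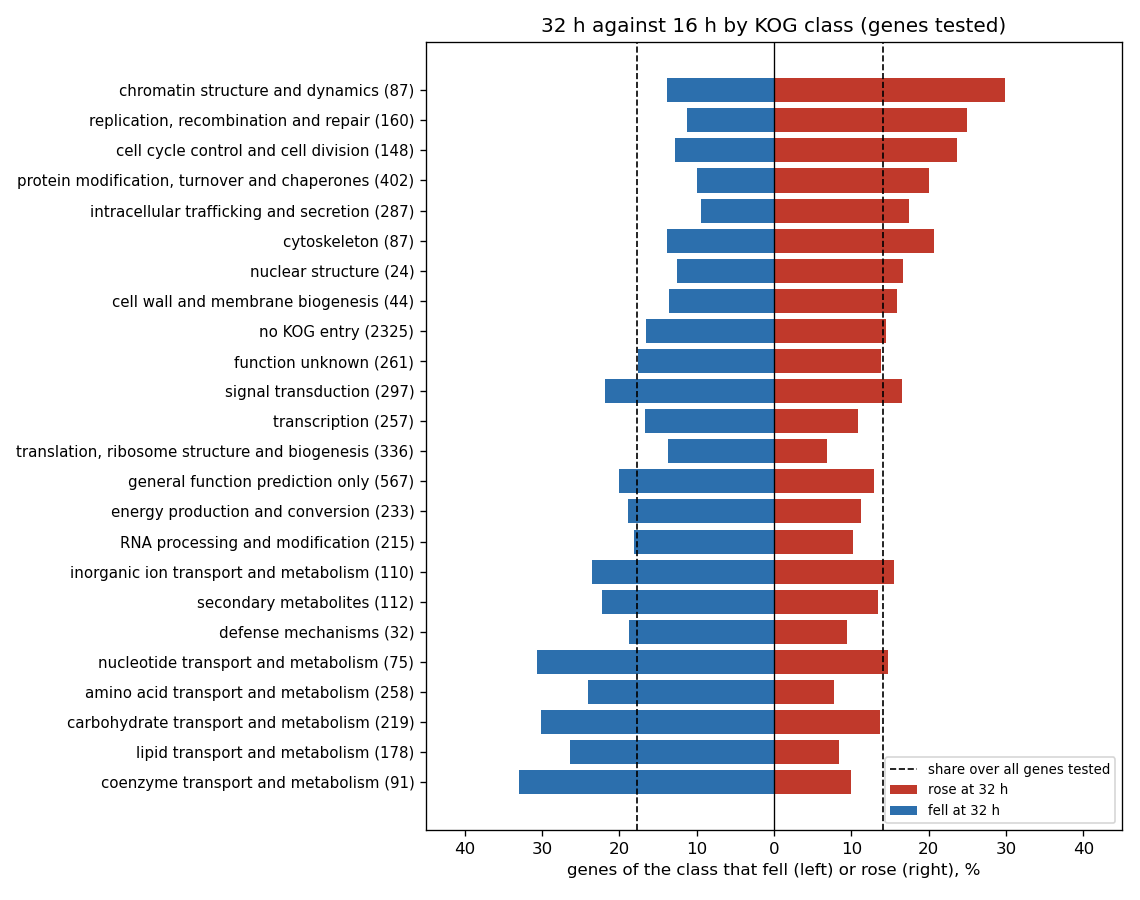
Share of the tested genes of each KOG class that rose (right) or fell (left) at 32 h against 16 h, in percent, with the number of genes tested in brackets and dashed lines at the shares over all genes, 14.1% risen and 17.7% fallen. Chromatin, replication and cell cycle classes stand at the top with 23.6% to 29.9% risen, and coenzyme, lipid and carbohydrate classes at the bottom with 26.4% to 33.0% fallen.

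Genes that start the use of sugar fell. The invertase gene, WICANDRAFT_35787, whose product cleaves sucrose, had 0.935, 0.884 and 1.83 CPM at 32 h, against 1741, 62.0 and 1363 CPM at 16 h. WICANDRAFT_35787 fell by 9.75 log2 units (SE 1.10, edgeR adjusted p = 4.27e-05). The 16 h libraries were unequal, with replicate 2 far below the others, yet all of them lay above every 32 h library. The hexokinase gene WICANDRAFT_65261 had 84.7, 70.2 and 71.7 CPM at 32 h, against 25910, 5866 and 22520 CPM at 16 h. WICANDRAFT_65261 fell by 7.90 log2 units (SE 1.16, edgeR adjusted p = 0.000268). A further hexokinase gene, WICANDRAFT_79472, had 1054, 642 and 442 CPM at 32 h, against 24180, 18660 and 13270 CPM at 16 h. WICANDRAFT_79472 fell by 4.71 log2 units (SE 0.62, edgeR adjusted p = 0.000116). Hexokinase phosphorylates glucose and fructose at the entry of glycolysis, and neither gene's groups overlapped. The remaining hexokinase-like gene, NGK1, did not pass, with 5.25, 6.27 and 5.32 CPM at 32 h, against 3.96, 5.36 and 5.78 CPM at 16 h. NGK1 had a log2 fold change of 0.16 (SE 0.35, edgeR adjusted p = 0.767).

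In the upper part of glycolysis each step had a gene that fell. PGI1, which turns glucose 6-phosphate into fructose 6-phosphate, had 355, 355 and 654 CPM at 32 h, against 6102, 4916 and 4527 CPM at 16 h. PGI1 fell by 3.51 log2 units (SE 0.51, edgeR adjusted p = 0.000257). Phosphofructokinase commits the sugar to breakdown, and its subunit gene PFK1 had 9.30, 14.1 and 40.5 CPM at 32 h, against 2512, 1134 and 3377 CPM at 16 h. PFK1 fell by 6.78 log2 units (SE 0.90, edgeR adjusted p = 0.000130). For PFK1, the log2 fold change was -7.64 without 32 h replicate 3. The partner subunit PFK2 had 48.3, 54.3 and 82.9 CPM at 32 h, against 3804, 3251 and 4570 CPM at 16 h. PFK2 fell by 5.97 log2 units (SE 0.56, edgeR adjusted p = 1.07e-05). The aldolase gene FBA1, which splits the sugar bisphosphate, had 218, 229.6 and 603 CPM at 32 h, against 82780, 38550 and 50950 CPM at 16 h. FBA1 fell by 7.36 log2 units (SE 0.99, edgeR adjusted p = 0.000142), and the log2 fold change was -8.00 without 32 h replicate 3. TPI1, which interconverts the triose phosphates, had 157, 159 and 294 CPM at 32 h, against 9590, 8091 and 7421 CPM at 16 h. TPI1 fell by 5.36 log2 units (SE 0.61, edgeR adjusted p = 4.25e-05). In each of these genes replicate 3 was the highest of the 32 h libraries, and all 32 h values were below all 16 h values.

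Genes of the lower part of the pathway fell as well. The glyceraldehyde 3-phosphate dehydrogenase gene, WICANDRAFT_25185, had 2787, 2489 and 7712 CPM at 32 h, against 358900, 141700 and 194600 CPM at 16 h. WICANDRAFT_25185 fell by 5.74 log2 units (SE 0.92, edgeR adjusted p = 0.000481), and the log2 fold change was -6.46 without 32 h replicate 3. PGK1, phosphoglycerate kinase, had 538, 518 and 1225 CPM at 32 h, against 105700, 45280 and 55100 CPM at 16 h. PGK1 fell by 6.50 log2 units (SE 0.95, edgeR adjusted p = 0.000251). GPM1, phosphoglycerate mutase, had 1514, 1166 and 1755 CPM at 32 h, against 54250, 31260 and 29150 CPM at 16 h. GPM1 fell by 4.69 log2 units (SE 0.68, edgeR adjusted p = 0.000238). In each of these genes the 32 h libraries stayed below the 16 h libraries. The enolase gene WICANDRAFT_30943 had 384, 398 and 1838 CPM at 32 h, against 221400, 105800 and 129900 CPM at 16 h. WICANDRAFT_30943 fell by 7.45 log2 units (SE 1.10, edgeR adjusted p = 0.000268), and the log2 fold change was -8.61 without 32 h replicate 3. Pyruvate kinase (WICANDRAFT_88059), the last step, had 100, 91.0 and 611 CPM at 32 h, against 71790, 13710 and 43260 CPM at 16 h. WICANDRAFT_88059 fell by 7.33 log2 units (SE 1.18, edgeR adjusted p = 0.000488), and the log2 fold change was -6.74 without 16 h replicate 1 and -8.81 without 32 h replicate 3. Over the list of hexokinase to pyruvate kinase, with 16 genes, 0 rose, 14 fell and 2 did not pass, and 14 fell in each fit that left out a library. The glycolysis, hexokinase to pyruvate kinase list had a median log2 change of -5.55 with TMM and -4.25 with library size scaling, where 1 rose and 14 fell. The members that did not pass were NGK1 and a minor glyceraldehyde 3-phosphate dehydrogenase gene, WICANDRAFT_69455, with 19.3, 13.0 and 10.4 CPM at 32 h, against 3.74, 9.23 and 3.38 CPM at 16 h. WICANDRAFT_69455 had a log2 fold change of 1.38 (SE 0.52, edgeR adjusted p = 0.0556, called with library size scaling at 2.44, and called at 2.18 without 16 h replicate 2 and 32 h replicate 3), and it passed without 16 h replicate 2 (2.0).

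Regulators of the route and genes at its exit fell, while LPD1 did not pass. PFK26 and PFK27 make fructose 2,6-bisphosphate, an activator of phosphofructokinase. PFK27 had 6.70, 5.68 and 2.69 CPM at 32 h, against 114, 110.5 and 168 CPM at 16 h. PFK27 fell by 4.71 log2 units (SE 0.64, edgeR adjusted p = 0.000146). PFK26 had 7.43, 7.13 and 14.4 CPM at 32 h, against 145, 119 and 163 CPM at 16 h, and neither overlapped between groups. PFK26 fell by 3.88 log2 units (SE 0.42, edgeR adjusted p = 3.33e-05). At the exit, a gene annotated as a thiamine pyrophosphate-requiring enzyme with the KEGG entry of pyruvate decarboxylase, WICANDRAFT_46076, had 265, 259.5 and 646 CPM at 32 h, against 61400, 14670 and 46140 CPM at 16 h. WICANDRAFT_46076 fell by 6.71 log2 units (SE 0.94, edgeR adjusted p = 0.000194). Pyruvate dehydrogenase is the mitochondrial complex that makes acetyl-CoA, and both genes of its E1 component fell. PDB1 had 106, 96.4 and 109 CPM at 32 h, against 1512, 1375 and 1041 CPM at 16 h. PDB1 fell by 3.66 log2 units (SE 0.45, edgeR adjusted p = 7.73e-05). PDA1 had 759, 605 and 711 CPM at 32 h, against 4448, 2179 and 2625 CPM at 16 h. PDA1 fell by 2.16 log2 units (SE 0.44, edgeR adjusted p = 0.00243). LPD1, the subunit that the complex shares with other dehydrogenases, had 89.4, 93.7 and 100.5 CPM at 32 h, against 215, 104 and 224 CPM at 16 h and did not pass. LPD1 had a log2 fold change of -0.94 (SE 0.40, edgeR adjusted p = 0.0872, and called at -1.26 without 16 h replicate 2 and 32 h replicate 3), and it passed without 16 h replicate 2 (-1.22).

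The Leloir genes of galactose use, which feed galactose into glycolysis, fell as well. GAL1, galactokinase, had 0.675, 1.27 and 5.68 CPM at 32 h, against 258, 72.9 and 335 CPM at 16 h. GAL1 fell by 6.43 log2 units (SE 1.24, edgeR adjusted p = 0.00155), and the log2 fold change was -7.80 without 32 h replicate 3. GAL7, the uridylyltransferase, had 3.07, 5.92 and 13.2 CPM at 32 h, against 309, 270.0 and 348 CPM at 16 h. GAL7 fell by 5.38 log2 units (SE 1.03, edgeR adjusted p = 0.00151), and the log2 fold change was -6.10 without 32 h replicate 3. GAL10, the epimerase, had 41.8, 36.2 and 21.4 CPM at 32 h, against 491, 323 and 519.6 CPM at 16 h. GAL10 fell by 3.75 log2 units (SE 0.53, edgeR adjusted p = 0.000208). In all of them the highest 32 h library was below the lowest 16 h library. In the KEGG pathway of galactose metabolism, which also holds invertase and hexokinase, 0 rose, 10 fell and 7 did not pass of 17 genes. The galactose metabolism list had a median log2 change of -2.69 with TMM and -1.67 with library size scaling, where 3 rose and 8 fell.

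Genes that run the carbon route backwards rose in part. PCK1, phosphoenolpyruvate carboxykinase, had 1096, 1101 and 268 CPM at 32 h, against 7.55, 54.5 and 10.6 CPM at 16 h. PCK1 rose by 5.08 log2 units (SE 0.89, edgeR adjusted p = 0.000872), and the log2 fold change was 6.50 without 16 h replicate 2. MLS1, malate synthase of the glyoxylate cycle, had 104, 155 and 106 CPM at 32 h, against 35.5, 28.6 and 20.8 CPM at 16 h. MLS1 rose by 2.10 log2 units (SE 0.44, edgeR adjusted p = 0.00257). ICL1, isocitrate lyase, had 1163, 2069 and 454 CPM at 32 h, against 17.8, 295 and 22.2 CPM at 16 h. ICL1 rose by 3.46 log2 units (SE 1.06, edgeR adjusted p = 0.0228). Replicate 3 was the lowest 32 h library in PCK1 and ICL1, and 16 h replicate 2 the highest 16 h library, so the groups lay closest where the libraries stood apart. For ICL1, the call ended without 16 h replicate 1 (2.96), 16 h replicate 3 (2.98) and 32 h replicate 2 (2.86) and the log2 fold change was 5.94 without 16 h replicate 2. FBP1, fructose 1,6-bisphosphatase, which is specific to gluconeogenesis, had 1118, 545 and 257 CPM at 32 h, against 265, 485 and 188 CPM at 16 h and did not pass. FBP1 had a log2 fold change of 1.03 (SE 0.58, edgeR adjusted p = 0.189, called with library size scaling at 2.06, and called at 1.88 without 16 h replicate 2 and 32 h replicate 3). Its groups overlapped, since 32 h replicate 3 lay below 16 h replicates 1 and 2. The isocitrate lyase paralog ICL2 did not pass either, with 7.79, 9.87 and 6.42 CPM at 32 h, against 2.49, 12.6 and 4.92 CPM at 16 h. ICL2 had a log2 fold change of 0.27 (SE 0.49, edgeR adjusted p = 0.708, and called at 1.24 without 16 h replicate 2 and 32 h replicate 3). Over the list of 7 genes, 4 rose, 1 fell and 2 did not pass. The gluconeogenesis and glyoxylate cycle list had a median log2 change of 1.51 with TMM and 2.66 with library size scaling, where 5 rose and 0 fell. For the gluconeogenesis and glyoxylate cycle list counts moved to 2 risen without 16 h replicate 1, 16 h replicate 3 or 32 h replicate 2 and 0 fallen without 16 h replicate 1, 16 h replicate 3, 32 h replicate 1, 32 h replicate 2 or 32 h replicate 3.

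**Figure D2:**
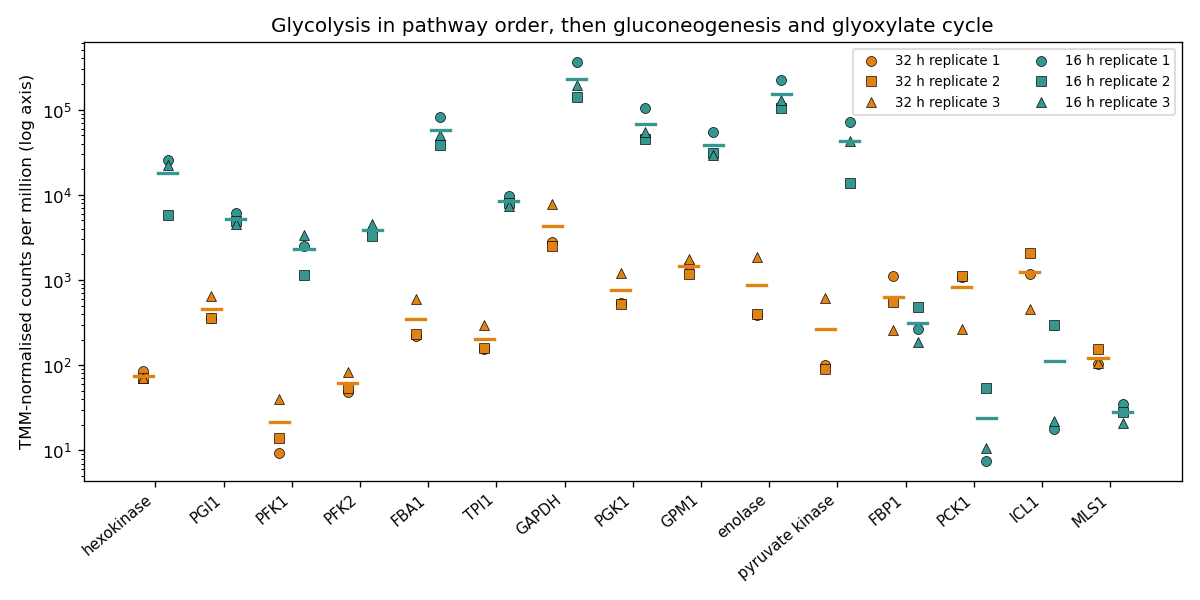
TMM-normalised CPM on a log axis in the 32 h libraries (orange, left of each pair) and the 16 h libraries (green, right) for glycolysis in pathway order and for gluconeogenesis and the glyoxylate cycle. Symbols mark replicates 1 to 3 and bars the group means; all 32 h values of the glycolytic genes shown lie below all 16 h values, FBP1 overlaps, and PCK1, ICL1 and MLS1 lie higher at 32 h.

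Genes of alcohol, polyol and aldehyde oxidation split by paralog. The class V alcohol dehydrogenase gene WICANDRAFT_62195 fell with glycolysis (93.8, 99.6 and 213 CPM at 32 h, against 60090, 13640 and 48210 CPM at 16 h). WICANDRAFT_62195 fell by 8.23 log2 units (SE 1.13, edgeR adjusted p = 0.000163). ADH3, among the 5 genes with the most counts at 32 h, did not pass, with 45090, 35170 and 22570 CPM at 32 h, against 53710, 22830 and 23850 CPM at 16 h. ADH3 had a log2 fold change of 0.03 (SE 0.62, edgeR adjusted p = 0.972). Over 11 alcohol dehydrogenase genes, 2 rose, 4 fell and 5 did not pass. Their median log2 change was -1.36 with TMM and -0.04 with library size scaling, where 3 rose and 2 fell. Their counts moved to 1 risen without 16 h replicate 1 or 32 h replicate 2 and 0 risen without 16 h replicate 3 or 32 h replicate 1. The sorbitol dehydrogenase family, which oxidises polyols, held both directions. Its gene WICANDRAFT_36899 had 584, 375 and 340.2 CPM at 32 h, against 8450, 13440 and 4283 CPM at 16 h. WICANDRAFT_36899 fell by 4.33 log2 units (SE 0.73, edgeR adjusted p = 0.000645). WICANDRAFT_34103 had 132, 153 and 176 CPM at 32 h, against 1173, 644 and 1463 CPM at 16 h. WICANDRAFT_34103 fell by 2.83 log2 units (SE 0.36, edgeR adjusted p = 9.53e-05). The risen WICANDRAFT_35547 had 6.60, 3.86 and 4.21 CPM at 32 h, against 0.440, 0.129 and 0.773 CPM at 16 h. WICANDRAFT_35547 rose by 3.37 log2 units (SE 0.63, edgeR adjusted p = 0.00129), and the log2 fold change was 4.11 without 16 h replicate 3. Another member, WICANDRAFT_35934, had 965, 641 and 444 CPM at 32 h, against 135, 120.2 and 62.6 CPM at 16 h, so that of 7 genes of this family 3 rose, 3 fell and 1 did not pass. WICANDRAFT_35934 rose by 2.69 log2 units (SE 0.44, edgeR adjusted p = 0.000532). The family's median log2 change was -0.67 with TMM and 0.43 with library size scaling, where 3 rose and 2 fell. Aldehyde dehydrogenases supply acetate, and the risen member WICANDRAFT_25445 had 2963, 2718 and 588 CPM at 32 h, against 58.3, 88.3 and 92.7 CPM at 16 h, with replicate 3 again the lowest 32 h library. WICANDRAFT_25445 rose by 4.71 log2 units (SE 0.84, edgeR adjusted p = 0.000974). The fallen WICANDRAFT_80365 had 13.8, 20.2 and 7.53 CPM at 32 h, against 75.6, 81.8 and 96.8 CPM at 16 h, and over 13 genes 1 rose, 2 fell and 10 did not pass. WICANDRAFT_80365 fell by 2.61 log2 units (SE 0.48, edgeR adjusted p = 0.00109). The aldehyde dehydrogenases list had a median log2 change of -0.32 with TMM and 0.82 with library size scaling, where 5 rose and 1 fell. Its counts moved to 2 risen without 16 h replicate 2 or 16 h replicate 3 and 1 fallen without 16 h replicate 1, 32 h replicate 1, 32 h replicate 2 or 32 h replicate 3.

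Few genes of the citrate cycle and of the respiratory chain passed with TMM scaling. Of 17 core enzyme genes of the citrate cycle, 0 rose, 1 fell and 16 did not pass. The citrate cycle core list had a median log2 change of -0.03 with TMM and 1.22 with library size scaling, where 10 rose and 0 fell. For the citrate cycle core list counts moved to 0 fallen without 16 h replicate 1, 16 h replicate 3, 32 h replicate 2 or 32 h replicate 3 and 2 fallen without 16 h replicate 2. ACO1, aconitase, had 3186, 2919 and 2924 CPM at 32 h, against 2581, 1106 and 1661 CPM at 16 h. ACO1 had a log2 fold change of 0.76 (SE 0.40, edgeR adjusted p = 0.158, called with library size scaling at 2.01). MDH1, malate dehydrogenase, had 3408, 2910 and 2692 CPM at 32 h, against 7883, 3570 and 4693 CPM at 16 h. MDH1 had a log2 fold change of -0.84 (SE 0.44, edgeR adjusted p = 0.155). KGD1, a subunit of oxoglutarate dehydrogenase, had 360.0, 414 and 342 CPM at 32 h, against 332, 274 and 316 CPM at 16 h. KGD1 had a log2 fold change of 0.28 (SE 0.28, edgeR adjusted p = 0.482, called with library size scaling at 1.46). None of these passed, although the groups did not overlap in any of them. KGD4, which links the subunits of oxoglutarate dehydrogenase, stood among the 10 largest rises, with 1294, 1314 and 517 CPM at 32 h, against 54.0, 118 and 29.5 CPM at 16 h. KGD4 rose by 3.96 log2 units (SE 0.68, edgeR adjusted p = 0.000791), and the log2 fold change was 4.64 without 16 h replicate 2.

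Oxidative phosphorylation, with 81 genes, gave 6 risen, 7 fallen and 68 that did not pass. The oxidative phosphorylation list had a median log2 change of -0.05 with TMM and 1.20 with library size scaling, where 44 rose and 1 fell. For the oxidative phosphorylation list counts moved to 3 risen without 16 h replicate 3 or 32 h replicate 1, 4 fallen without 16 h replicate 1 or 16 h replicate 3, 17 fallen without 16 h replicate 2 and 3 fallen without 32 h replicate 1. The risen members included small subunits of the cytochrome bc1 complex. QCR10 had 1056, 974 and 377 CPM at 32 h, against 165, 161 and 133 CPM at 16 h. QCR10 rose by 2.39 log2 units (SE 0.56, edgeR adjusted p = 0.00553). QCR8 had 1763, 1277 and 729.8 CPM at 32 h, against 437, 146 and 199 CPM at 16 h. QCR8 rose by 2.27 log2 units (SE 0.56, edgeR adjusted p = 0.00730). QCR9 had 47.9, 50.9 and 34.7 CPM at 32 h, against 20.7, 10.5 and 17.9 CPM at 16 h. QCR9 rose by 1.44 log2 units (SE 0.32, edgeR adjusted p = 0.00409). For QCR8, the log2 fold change was 2.86 without 16 h replicate 1. Among the fallen, PMA1 is the plasma membrane proton pump, which spends ATP to hold the proton gradient that drives uptake. It had 1964, 1695 and 2469 CPM at 32 h, against 14430, 9072 and 10830 CPM at 16 h. PMA1 fell by 2.49 log2 units (SE 0.48, edgeR adjusted p = 0.00152). An alternative NADH dehydrogenase gene, WICANDRAFT_33524, had 20.3, 25.4 and 33.9 CPM at 32 h, against 91.1, 36.0 and 146 CPM at 16 h. WICANDRAFT_33524 fell by 1.78 log2 units (SE 0.43, edgeR adjusted p = 0.00694, not called with library size scaling at -0.57). COX15, needed for heme A of cytochrome oxidase, had 35.9, 45.2 and 23.5 CPM at 32 h, against 86.2, 91.4 and 109 CPM at 16 h. COX15 fell by 1.45 log2 units (SE 0.30, edgeR adjusted p = 0.00221, not called with library size scaling at -0.32). Of 18 complex I genes, 1 rose, 0 fell and 17 did not pass. The complex I subunits list had a median log2 change of 0.21 with TMM and 1.40 with library size scaling, where 12 rose and 0 fell. For the complex I subunits list counts moved to 0 risen without 16 h replicate 1, 16 h replicate 2, 16 h replicate 3, 32 h replicate 1 or 32 h replicate 2. The pentose phosphate core, which makes NADPH and pentoses, had 0 risen, 2 fallen and 6 that did not pass over 8 genes. The pentose phosphate pathway core list had a median log2 change of -0.37 with TMM and 0.85 with library size scaling, where 3 rose and 0 fell. For the pentose phosphate pathway core list counts moved to 0 fallen without 16 h replicate 1, 32 h replicate 1 or 32 h replicate 2. ZWF1, its entry enzyme, had 39.9, 49.6 and 128 CPM at 32 h, against 122, 41.6 and 117 CPM at 16 h. ZWF1 had a log2 fold change of -0.37 (SE 0.50, edgeR adjusted p = 0.605, and called at -1.42 without 16 h replicate 2 and 32 h replicate 3).

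In storage and osmolyte metabolism, fallen genes served both synthesis and breakdown. Glycerol 3-phosphate dehydrogenase WICANDRAFT_30049, the entry of glycerol synthesis, had 2.39, 3.50 and 6.95 CPM at 32 h, against 379.7, 398 and 626 CPM at 16 h. WICANDRAFT_30049 fell by 6.76 log2 units (SE 0.52, edgeR adjusted p = 2.94e-06). GPH1, glycogen phosphorylase, had 149, 149 and 276 CPM at 32 h, against 3791, 4227 and 4989 CPM at 16 h. GPH1 fell by 4.50 log2 units (SE 0.60, edgeR adjusted p = 0.000139). TPS1, trehalose 6-phosphate synthase, had 83.6, 104 and 129 CPM at 32 h, against 374, 235 and 391 CPM at 16 h. TPS1 fell by 1.66 log2 units (SE 0.30, edgeR adjusted p = 0.000947, not called with library size scaling at -0.43). The neutral trehalase gene WICANDRAFT_64361 had 35.3, 46.5 and 52.8 CPM at 32 h, against 145, 119.5 and 175 CPM at 16 h. WICANDRAFT_64361 fell by 1.71 log2 units (SE 0.31, edgeR adjusted p = 0.00115, not called with library size scaling at -0.51). In each gene the 32 h libraries were all lower. Over 18 genes, 0 rose, 12 fell and 6 did not pass. The trehalose, glycogen and glycerol list had a median log2 change of -1.51 with TMM and -0.33 with library size scaling, where 3 rose and 4 fell. For the trehalose, glycogen and glycerol list counts moved to 7 fallen without 32 h replicate 1.

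In lipid synthesis the carboxylase at its entry fell, while sterol genes divided. ACC1, acetyl-CoA carboxylase, had 39.8, 61.7 and 129 CPM at 32 h, against 522, 359 and 691 CPM at 16 h. ACC1 fell by 2.77 log2 units (SE 0.78, edgeR adjusted p = 0.0150, not called with library size scaling at -1.52), and the call ended without 32 h replicate 1 (-2.44) and 32 h replicate 2 (-2.64) and the log2 fold change was -3.37 without 32 h replicate 3. MCT1, a malonyl-CoA transferase of mitochondrial fatty acid synthesis, had 5.72, 6.42 and 5.54 CPM at 32 h, against 93.2, 145 and 95.3 CPM at 16 h. MCT1 fell by 4.24 log2 units (SE 0.33, edgeR adjusted p = 2.94e-06). A long-chain acyl-CoA synthetase gene, WICANDRAFT_36592, had 10.9, 13.1 and 12.3 CPM at 32 h, against 92.6, 102 and 76.3 CPM at 16 h. WICANDRAFT_36592 fell by 2.90 log2 units (SE 0.38, edgeR adjusted p = 0.000111). Fatty acid synthesis builds the acyl chains of membranes and of ethyl esters, and over its 15 genes 0 rose, 6 fell and 9 did not pass. The fatty acid biosynthesis list had a median log2 change of -0.88 with TMM and 0.23 with library size scaling, where 4 rose and 2 fell. For the fatty acid biosynthesis list counts moved to 3 fallen without 32 h replicate 1 or 32 h replicate 2. In sterol synthesis, ERG3, the C5 desaturase, had 42.7, 61.4 and 127 CPM at 32 h, against 1461, 1061 and 1052 CPM at 16 h. ERG3 fell by 3.95 log2 units (SE 0.60, edgeR adjusted p = 0.000320). ERG11, the lanosterol demethylase, had 182, 226 and 154 CPM at 32 h, against 542, 905 and 480.5 CPM at 16 h. ERG11 fell by 1.78 log2 units (SE 0.36, edgeR adjusted p = 0.00233, not called with library size scaling at -0.64). ERG4, the last reductase, had 137, 106 and 47.9 CPM at 32 h, against 22.4, 32.1 and 14.0 CPM at 16 h. ERG4 rose by 2.08 log2 units (SE 0.43, edgeR adjusted p = 0.00244). The desaturase and demethylase use oxygen. Over 18 genes of the pathway, 2 rose, 7 fell and 9 did not pass. The steroid biosynthesis list had a median log2 change of -0.41 with TMM and 0.80 with library size scaling, where 7 rose and 2 fell. For the steroid biosynthesis list counts moved to 1 risen without 32 h replicate 2. Of 49 peroxisome genes, 6 rose, 4 fell and 39 did not pass. The peroxisome list had a median log2 change of -0.11 with TMM and 1.01 with library size scaling, where 21 rose and 2 fell. For the peroxisome list counts moved to 10 risen without 16 h replicate 2 and 10 fallen without 16 h replicate 2. A peroxiredoxin gene of that list, WICANDRAFT_27451, had 2799, 2017 and 2693 CPM at 32 h, against 423, 711 and 189 CPM at 16 h. WICANDRAFT_27451 rose by 2.50 log2 units (SE 0.61, edgeR adjusted p = 0.00685).

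Several genes of nucleotide synthesis fell. The ribonucleotide reductase alpha gene WICANDRAFT_92205, which makes deoxynucleotides, had 5.20, 6.07 and 12.9 CPM at 32 h, against 113, 63.1 and 95.5 CPM at 16 h. WICANDRAFT_92205 fell by 3.49 log2 units (SE 0.49, edgeR adjusted p = 0.000211). Its partner beta gene WICANDRAFT_35738 had 1.56, 2.42 and 6.81 CPM at 32 h, against 35.0, 11.8 and 37.7 CPM at 16 h. WICANDRAFT_35738 fell by 2.96 log2 units (SE 0.54, edgeR adjusted p = 0.00115), and the log2 fold change was -3.81 without 32 h replicate 3. On the way to AMP, ADE12 had 6.13, 12.7 and 11.2 CPM at 32 h, against 36.5, 74.8 and 47.0 CPM at 16 h. ADE12 fell by 2.39 log2 units (SE 0.36, edgeR adjusted p = 0.000315, not called with library size scaling at -1.24). On the way to GMP, GUA1 had 40.3, 38.1 and 27.0 CPM at 32 h, against 117, 163 and 166 CPM at 16 h. GUA1 fell by 2.08 log2 units (SE 0.30, edgeR adjusted p = 0.000224, not called with library size scaling at -0.99). The pyrimidine gene URA1, dihydroorotate dehydrogenase, had 20.2, 20.3 and 16.1 CPM at 32 h, against 305, 114 and 353 CPM at 16 h. URA1 fell by 3.77 log2 units (SE 0.42, edgeR adjusted p = 4.19e-05). Salvage and interconversion genes went the other way in part. YNK1, nucleoside diphosphate kinase, had 339, 355 and 221 CPM at 32 h, against 36.5, 59.8 and 32.1 CPM at 16 h. YNK1 rose by 2.83 log2 units (SE 0.44, edgeR adjusted p = 0.000404). URH1, uridine hydrolase, had 11.2, 10.4 and 7.12 CPM at 32 h, against 1.17, 1.42 and 1.14 CPM at 16 h. URH1 rose by 2.94 log2 units (SE 0.46, edgeR adjusted p = 0.000423). Purine metabolism, with 51 genes, gave 8 risen, 16 fallen and 27 that did not pass. The purine metabolism list had a median log2 change of -0.74 with TMM and 0.39 with library size scaling, where 18 rose and 4 fell. For the purine metabolism list counts moved to 5 risen without 16 h replicate 3 or 32 h replicate 1, 4 risen without 32 h replicate 2 and 10 fallen without 32 h replicate 1. Pyrimidine metabolism, with 30, gave 5 risen, 8 fallen and 17 that did not pass. The pyrimidine metabolism list had a median log2 change of -0.10 with TMM and 1.05 with library size scaling, where 13 rose and 4 fell. For the pyrimidine metabolism list counts moved to 5 fallen without 16 h replicate 3, 32 h replicate 1 or 32 h replicate 2.

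Among cofactors, thiamine is the coenzyme of pyruvate decarboxylase, pyruvate dehydrogenase and transketolase. THI4, of the thiazole branch, had 2319, 2352 and 4955 CPM at 32 h, against 186700, 98120 and 92500 CPM at 16 h. THI4 fell by 5.29 log2 units (SE 0.86, edgeR adjusted p = 0.000519). THI6, which joins the branches, had 109.8, 97.6 and 174 CPM at 32 h, against 2846, 424 and 1956 CPM at 16 h. THI6 fell by 3.78 log2 units (SE 0.63, edgeR adjusted p = 0.000642). The phosphomethylpyrimidine kinase gene WICANDRAFT_94868 had 222, 212 and 174 CPM at 32 h, against 3374, 1217 and 2719 CPM at 16 h. WICANDRAFT_94868 fell by 3.59 log2 units (SE 0.43, edgeR adjusted p = 5.69e-05). No 32 h value of these reached a 16 h value. Over 11 genes of thiamine metabolism, 0 rose, 6 fell and 5 did not pass, and 6 fell in each fit that left out a library. The thiamine metabolism list had a median log2 change of -1.38 with TMM and -0.19 with library size scaling, where 3 rose and 3 fell. PDX3, which makes pyridoxal phosphate, had 240.2, 143 and 84.0 CPM at 32 h, against 726, 1342 and 388 CPM at 16 h, and vitamin B6 metabolism gave 1 risen, 5 fallen and 4 that did not pass over 10 genes. PDX3 fell by 2.39 log2 units (SE 0.57, edgeR adjusted p = 0.00605). The vitamin B6 metabolism list had a median log2 change of -0.90 with TMM and 0.19 with library size scaling, where 2 rose and 2 fell. For the vitamin B6 metabolism list counts moved to 2 risen without 16 h replicate 2. SHM2, serine hydroxymethyltransferase, the main entry of the folate pool, had 50.8, 53.1 and 78.0 CPM at 32 h, against 300.2, 156 and 214 CPM at 16 h. SHM2 fell by 1.88 log2 units (SE 0.39, edgeR adjusted p = 0.00266, not called with library size scaling at -0.61). MTD1, which oxidises methylenetetrahydrofolate, had 35.5, 30.1 and 42.1 CPM at 32 h, against 185, 79.2 and 103 CPM at 16 h. MTD1 fell by 1.77 log2 units (SE 0.37, edgeR adjusted p = 0.00246, not called with library size scaling at -0.48). The folate list of 14 genes gave 1 risen, 7 fallen and 6 that did not pass. The one carbon pool by folate list had a median log2 change of -1.17 with TMM and -0.03 with library size scaling, where 4 rose and 1 fell. For the one carbon pool by folate list counts moved to 0 risen without 16 h replicate 1, 16 h replicate 3, 32 h replicate 2 or 32 h replicate 3 and 2 risen without 16 h replicate 2.

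In the panel of named ester and fusel alcohol genes, 3 rose, 0 fell and 3 did not pass of 6 genes. The ester and fusel alcohol panel list had a median log2 change of 1.15 with TMM and 2.30 with library size scaling, where 5 rose and 0 fell. For the ester and fusel alcohol panel list counts moved to 1 risen without 16 h replicate 3. These genes act in the Ehrlich pathway, which turns amino acids into fusel alcohols, and in ester turnover. ARO8, an aromatic aminotransferase, had 754, 486 and 208 CPM at 32 h, against 113, 79.6 and 71.8 CPM at 16 h. ARO8 rose by 2.45 log2 units (SE 0.54, edgeR adjusted p = 0.00395). ARO10, the phenylpyruvate decarboxylase, had 10.8, 10.04 and 10.2 CPM at 32 h, against 2.71, 5.94 and 3.21 CPM at 16 h. ARO10 rose by 1.39 log2 units (SE 0.41, edgeR adjusted p = 0.0191), and the call ended without 16 h replicate 1 (1.18) and 16 h replicate 3 (1.26). SFA1, a dehydrogenase that can reduce aldehydes to fusel alcohols, had 617, 384 and 499.5 CPM at 32 h, against 207, 95.4 and 134 CPM at 16 h. SFA1 rose by 1.78 log2 units (SE 0.53, edgeR adjusted p = 0.0206, and not called at 1.56 without 16 h replicate 2 and 32 h replicate 3), and the call ended without 16 h replicate 3 (1.73) and 32 h replicate 1 (1.63). All 32 h libraries were above all 16 h libraries in these risen genes. BAT1, the branched-chain aminotransferase, had 102, 125 and 56.2 CPM at 32 h, against 97.8, 117 and 149 CPM at 16 h. BAT1 had a log2 fold change of -0.36 (SE 0.50, edgeR adjusted p = 0.614). IAH1, which hydrolyses isoamyl acetate, had 12.9, 15.2 and 21.6 CPM at 32 h, against 10.3, 15.5 and 11.1 CPM at 16 h. IAH1 had a log2 fold change of 0.43 (SE 0.34, edgeR adjusted p = 0.344, called with library size scaling at 1.60). Both overlapped between the groups, and the volatile compounds themselves were not analysed here.

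With TMM scaling, lists of amino acid synthesis held risen and fallen genes, except the branched-chain list, where 0 rose. The branched-chain gene LEU4, isopropylmalate synthase, had 63.2, 56.9 and 58.3 CPM at 32 h, against 942, 286 and 641 CPM at 16 h. LEU4 fell by 3.39 log2 units (SE 0.52, edgeR adjusted p = 0.000328). LEU2, isopropylmalate dehydrogenase, had 50.9, 48.8 and 47.3 CPM at 32 h, against 281, 122 and 230.4 CPM at 16 h. LEU2 fell by 2.11 log2 units (SE 0.34, edgeR adjusted p = 0.000508). The serine gene SER2, phosphoserine phosphatase, had 2.91, 4.48 and 5.46 CPM at 32 h, against 106, 321 and 137 CPM at 16 h. SER2 fell by 5.45 log2 units (SE 0.57, edgeR adjusted p = 2.53e-05), and the log2 fold change was -4.82 without 16 h replicate 2. ARO1, which carries the middle steps to chorismate, had 37.0, 41.8 and 25.0 CPM at 32 h, against 239, 442 and 299 CPM at 16 h. ARO1 fell by 3.24 log2 units (SE 0.40, edgeR adjusted p = 7.36e-05). HIS5, histidinol phosphate aminotransferase, had 1.92, 2.47 and 2.63 CPM at 32 h, against 9.45, 4.07 and 10.1 CPM at 16 h. HIS5 fell by 1.75 log2 units (SE 0.32, edgeR adjusted p = 0.00121, not called with library size scaling at -0.51). Over 11 genes of branched-chain synthesis, 0 rose, 5 fell and 6 did not pass. The branched-chain amino acid biosynthesis list had a median log2 change of -0.73 with TMM and 0.53 with library size scaling, where 1 rose and 4 fell. The aromatic list, with 25 genes, gave 3 risen, 7 fallen and 15 that did not pass. The aromatic amino acid biosynthesis list had a median log2 change of -0.19 with TMM and 1.0 with library size scaling, where 10 rose and 1 fell. For the aromatic amino acid biosynthesis list counts moved to 1 risen without 16 h replicate 3 or 32 h replicate 1. For arginine, 4 rose, 2 fell and 14 did not pass of 20 genes. The arginine biosynthesis list had a median log2 change of 0.57 with TMM and 1.61 with library size scaling, where 12 rose and 0 fell. For the arginine biosynthesis list counts moved to 2 risen without 16 h replicate 1, 0 risen without 16 h replicate 3 or 32 h replicate 1, 1 risen without 32 h replicate 2, 1 fallen without 16 h replicate 1 or 32 h replicate 3 and 0 fallen without 16 h replicate 3, 32 h replicate 1 or 32 h replicate 2. The lysine list of 10 genes gave 2 risen, 1 fallen and 7 that did not pass. The lysine biosynthesis list had a median log2 change of 0.07 with TMM and 1.34 with library size scaling, where 6 rose and 0 fell. For the lysine biosynthesis list counts moved to 1 risen without 16 h replicate 3 or 32 h replicate 1 and 0 fallen without 32 h replicate 1.

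Genes of most steps of sulfate assimilation rose, while MET16 fell with TMM scaling. MET3, ATP sulfurylase, activates sulfate and had 11.7, 17.9 and 21.4 CPM at 32 h, against 4.76, 9.16 and 6.88 CPM at 16 h. MET3 rose by 1.29 log2 units (SE 0.32, edgeR adjusted p = 0.00834). MET14, which phosphorylates the product, had 15.5, 20.5 and 17.9 CPM at 32 h, against 2.86, 2.97 and 3.70 CPM at 16 h. MET14 rose by 2.49 log2 units (SE 0.47, edgeR adjusted p = 0.00142). MET16, the next enzyme, which reduces it to sulfite, was lower, with 8.88, 8.51 and 9.80 CPM at 32 h, against 17.4, 43.0 and 23.5 CPM at 16 h. MET16 fell by 1.62 log2 units (SE 0.33, edgeR adjusted p = 0.00212, not called with library size scaling at -0.53). Sulfite is then reduced to sulfide by sulfite reductase, whose subunit gene MET5 had 79.8, 81.0 and 65.0 CPM at 32 h, against 4.40, 11.0 and 6.26 CPM at 16 h. MET5 rose by 3.38 log2 units (SE 0.52, edgeR adjusted p = 0.000384). The cysteine synthase gene WICANDRAFT_26717 had 289.5, 201 and 173 CPM at 32 h, against 36.0, 11.1 and 30.2 CPM at 16 h. WICANDRAFT_26717 rose by 3.10 log2 units (SE 0.53, edgeR adjusted p = 0.000762). MET2, homoserine acetyltransferase, had 179, 198 and 114 CPM at 32 h, against 44.4, 21.2 and 46.5 CPM at 16 h. MET2 rose by 2.13 log2 units (SE 0.56, edgeR adjusted p = 0.0108). MET16 thus stood against its neighbours in the pathway, and none of the genes named here overlapped between the groups. Over 16 genes of sulfur metabolism, 7 rose, 3 fell and 6 did not pass. The sulfur metabolism list had a median log2 change of 1.39 with TMM and 2.51 with library size scaling, where 11 rose and 1 fell. A sulfatase gene, WICANDRAFT_65064, which was among the 10 largest rises, had 254, 190.4 and 134 CPM at 32 h, against 18.8, 5.55 and 16.8 CPM at 16 h. WICANDRAFT_65064 rose by 3.81 log2 units (SE 0.49, edgeR adjusted p = 0.000111). MET31, a zinc-finger factor of sulfur genes named after its values were seen, had 53.4, 55.4 and 41.3 CPM at 32 h, against 11.2, 3.03 and 6.83 CPM at 16 h. MET31 rose by 2.83 log2 units (SE 0.50, edgeR adjusted p = 0.000947). Glutathione S-transferases, which use a sulfur product, gave 5 risen, 0 fallen and 3 that did not pass over 8 genes. The glutathione S-transferases list had a median log2 change of 1.09 with TMM and 2.22 with library size scaling, where 6 rose and 0 fell. For the glutathione S-transferases list counts moved to 3 risen without 16 h replicate 1, 16 h replicate 3 or 32 h replicate 2 and 2 risen without 32 h replicate 1. Of these, WICANDRAFT_86165 had 93.3, 120.5 and 119 CPM at 32 h, against 20.8, 10.9 and 21.7 CPM at 16 h. WICANDRAFT_86165 rose by 2.64 log2 units (SE 0.40, edgeR adjusted p = 0.000329).

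Uptake genes were called in both directions. In the major facilitator superfamily, which holds sugar, polyol and drug carriers, 22 rose, 26 fell and 86 did not pass of 134 genes, and the shares of 16.4% risen and 19.4% fallen were near those over all genes. The major facilitator superfamily list had a median log2 change of -0.01 with TMM and 1.11 with library size scaling, where 58 rose and 12 fell. Its gene WICANDRAFT_84441 carried a KEGG entry of hexose transporters and had 226, 201 and 457 CPM at 32 h, against 109800, 65190 and 65280 CPM at 16 h. WICANDRAFT_84441 fell by 8.09 log2 units (SE 1.42, edgeR adjusted p = 0.000900). STL1, a glycerol and proton symporter, had 1.56, 2.003 and 3.57 CPM at 32 h, against 22.3, 27.1 and 17.7 CPM at 16 h. STL1 fell by 3.22 log2 units (SE 0.39, edgeR adjusted p = 6.39e-05). On the risen side, WICANDRAFT_62208 had 389, 259 and 124 CPM at 32 h, against 35.9, 6.91 and 26.0 CPM at 16 h. WICANDRAFT_62208 rose by 3.49 log2 units (SE 0.58, edgeR adjusted p = 0.000611). WICANDRAFT_79528 had 100.2, 77.6 and 88.0 CPM at 32 h, against 9.16, 4.65 and 11.5 CPM at 16 h. WICANDRAFT_79528 rose by 3.39 log2 units (SE 0.39, edgeR adjusted p = 4.79e-05). The substrates of the risen carriers are not given by the annotation. Amino acid transporters gave 0 risen, 14 fallen and 34 that did not pass over 48 genes. The amino acid transporters list had a median log2 change of -0.52 with TMM and 0.67 with library size scaling, where 16 rose and 4 fell. For the amino acid transporters list counts moved to 3 risen without 16 h replicate 2 and 9 fallen without 32 h replicate 1. The transporter gene WICANDRAFT_48765 had 29.5, 22.6 and 11.1 CPM at 32 h, against 1231, 200.5 and 1314 CPM at 16 h. WICANDRAFT_48765 fell by 5.44 log2 units (SE 0.82, edgeR adjusted p = 0.000315). AGP2, known for carnitine uptake, had 354, 285 and 149 CPM at 32 h, against 1029, 1491 and 935 CPM at 16 h. AGP2 fell by 2.13 log2 units (SE 0.41, edgeR adjusted p = 0.00142). Carriers of the ISP4 family, which holds oligopeptide transporters, gave 3 risen, 1 fallen and 6 that did not pass over 10 genes, with OPT1 at 388, 344 and 447 CPM at 32 h, against 108, 35.2 and 129 CPM at 16 h. OPT1 rose by 2.11 log2 units (SE 0.46, edgeR adjusted p = 0.00365). The ISP4 family list had a median log2 change of 0.06 with TMM and 1.31 with library size scaling, where 4 rose and 0 fell. For the ISP4 family list counts moved to 3 fallen without 16 h replicate 2 and 0 fallen without 16 h replicate 3, 32 h replicate 1 or 32 h replicate 2. A monocarboxylate transporter gene, WICANDRAFT_28286, had 19.9, 13.7 and 11.7 CPM at 32 h, against 2.20, 1.81 and 2.16 CPM at 16 h, and of 16 genes of that family 3 rose, 3 fell and 10 did not pass. WICANDRAFT_28286 rose by 2.87 log2 units (SE 0.33, edgeR adjusted p = 4.79e-05). The monocarboxylate transporters list had a median log2 change of -0.84 with TMM and 0.47 with library size scaling, where 5 rose and 0 fell. For the monocarboxylate transporters list counts moved to 5 fallen without 16 h replicate 2 and 1 fallen without 32 h replicate 1 or 32 h replicate 2.

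Among ABC exporters, called genes were all fallen with TMM and mostly risen with library size scaling. In the ABC superfamily, whose members pump drugs, lipids and peptides, 0 rose, 11 fell and 21 did not pass of 32 genes. The ABC superfamily list had a median log2 change of -0.75 with TMM and 0.40 with library size scaling, where 6 rose and 1 fell. For the ABC superfamily list counts moved to 7 fallen without 32 h replicate 1 or 32 h replicate 2. The multidrug resistance-associated gene WICANDRAFT_59699 had 72.8, 93.4 and 146 CPM at 32 h, against 479, 428 and 676 CPM at 16 h. WICANDRAFT_59699 fell by 2.34 log2 units (SE 0.50, edgeR adjusted p = 0.00297, not called with library size scaling at -1.15). ATM1, the mitochondrial iron-sulfur exporter, had 21.8, 37.6 and 38.5 CPM at 32 h, against 189, 1873 and 243 CPM at 16 h. ATM1 fell by 4.56 log2 units (SE 0.77, edgeR adjusted p = 0.000691). For ATM1, the log2 fold change was -2.72 without 16 h replicate 2. Mitochondrial carriers exchange metabolites with the cytosol and gave 5 risen, 5 fallen and 24 that did not pass over 34 genes, 14.7% in each direction and near the shares over all genes. The mitochondrial carriers list had a median log2 change of 0.01 with TMM and 1.24 with library size scaling, where 18 rose and 2 fell. For the mitochondrial carriers list counts moved to 2 risen without 16 h replicate 1 or 16 h replicate 3, 1 risen without 32 h replicate 1 or 32 h replicate 2, 3 risen without 32 h replicate 3 and 3 fallen without 32 h replicate 1 or 32 h replicate 2. OAC1, which carries oxaloacetate, had 2.23, 1.94 and 1.22 CPM at 32 h, against 33.6, 12.6 and 55.9 CPM at 16 h. OAC1 fell by 4.25 log2 units (SE 0.63, edgeR adjusted p = 0.000268). CRC1, which carries acylcarnitine, had 827, 608 and 94.0 CPM at 32 h, against 122, 151 and 60.2 CPM at 16 h. CRC1 rose by 2.20 log2 units (SE 0.67, edgeR adjusted p = 0.0215). Its groups overlapped, and the call ended without 16 h replicate 1 (2.27), 16 h replicate 3 (1.90), 32 h replicate 1 (1.69) and 32 h replicate 2 (2.05).

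With TMM scaling, ribosome assembly genes were more often fallen than risen and 0 genes of the KEGG ribosome list fell, while with library size scaling risen genes outnumbered fallen genes in both lists. UTP13 and UTP4 belong to the complex that processes the small subunit RNA. UTP13 had 3.74, 4.09 and 3.68 CPM at 32 h, against 24.8, 23.6 and 25.1 CPM at 16 h. UTP13 fell by 2.67 log2 units (SE 0.33, edgeR adjusted p = 7.06e-05). UTP4 had 3.12, 3.30 and 2.58 CPM at 32 h, against 9.97, 15.3 and 14.0 CPM at 16 h. UTP4 fell by 2.13 log2 units (SE 0.35, edgeR adjusted p = 0.000585, not called with library size scaling at -1.02). NOG2, a GTPase of large subunit assembly, had 9.56, 11.0 and 13.2 CPM at 32 h, against 48.3, 14.7 and 66.0 CPM at 16 h. NOG2 fell by 1.93 log2 units (SE 0.45, edgeR adjusted p = 0.00553, not called with library size scaling at -0.71). All 32 h libraries were lower in these genes. The list of 76 genes gave 5 risen, 25 fallen and 46 that did not pass. The ribosome biogenesis list had a median log2 change of -0.78 with TMM and 0.38 with library size scaling, where 21 rose and 1 fell. For the ribosome biogenesis list counts moved to 3 risen without 16 h replicate 1, 16 h replicate 3 or 32 h replicate 2, 8 risen without 16 h replicate 2 and 2 risen without 32 h replicate 1. Its largest rise was that of GSP1, the Ran GTPase of nuclear transport, with 867, 734 and 526 CPM at 32 h, against 213, 154 and 159 CPM at 16 h. GSP1 rose by 2.01 log2 units (SE 0.37, edgeR adjusted p = 0.00115). Of 123 ribosome genes, cytosolic and mitochondrial, 9 rose, 0 fell and 114 did not pass. The ribosome list had a median log2 change of 0.27 with TMM and 1.52 with library size scaling, where 90 rose and 0 fell. For the ribosome list counts moved to 16 risen without 16 h replicate 1, 4 risen without 16 h replicate 3 or 32 h replicate 1, 5 risen without 32 h replicate 2 and 5 fallen without 16 h replicate 2. The wider GO term ribosome, with 213 genes, had 17 risen, 7 fallen and 189 that did not pass. Its median log2 change was 0.16 with TMM and 1.38 with library size scaling, where 144 rose and 1 fell. Risen counts moved to 5 without 16 h replicate 3 or 32 h replicate 1 and 7 without 32 h replicate 2. Fallen counts moved to 17 without 16 h replicate 2 and 4 without 32 h replicate 1 or 32 h replicate 2. RPS28A had 629, 356 and 402 CPM at 32 h, against 164, 81.0 and 60.7 CPM at 16 h. RPS28A rose by 2.18 log2 units (SE 0.53, edgeR adjusted p = 0.00680). MRPS12 of the mitochondrial ribosome had 166, 112 and 60.5 CPM at 32 h, against 35.4, 38.3 and 21.6 CPM at 16 h. MRPS12 rose by 1.83 log2 units (SE 0.44, edgeR adjusted p = 0.00659). Aminoacyl-tRNA synthesis gave 1 risen, 10 fallen and 26 that did not pass over 37 genes. The aminoacyl-tRNA biosynthesis list had a median log2 change of -0.22 with TMM and 0.93 with library size scaling, where 13 rose and 1 fell. For the aminoacyl-tRNA biosynthesis list counts moved to 0 risen without 16 h replicate 1, 16 h replicate 3, 32 h replicate 1 or 32 h replicate 2, 2 risen without 16 h replicate 2 or 32 h replicate 3, 6 fallen without 16 h replicate 3 or 32 h replicate 2 and 5 fallen without 32 h replicate 1. ILS1, isoleucyl-tRNA synthetase, had 40.5, 49.4 and 42.2 CPM at 32 h, against 144, 130.5 and 235 CPM at 16 h. ILS1 fell by 1.95 log2 units (SE 0.33, edgeR adjusted p = 0.000630, not called with library size scaling at -0.80). RNA polymerase subunits gave 0 risen, 4 fallen and 24 that did not pass over 28 genes. The RNA polymerase list had a median log2 change of -0.43 with TMM and 0.73 with library size scaling, where 9 rose and 0 fell. For the RNA polymerase list counts moved to 7 fallen without 16 h replicate 2, 2 fallen without 32 h replicate 1 or 32 h replicate 3 and 0 fallen without 32 h replicate 2.

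**Figure D3:**
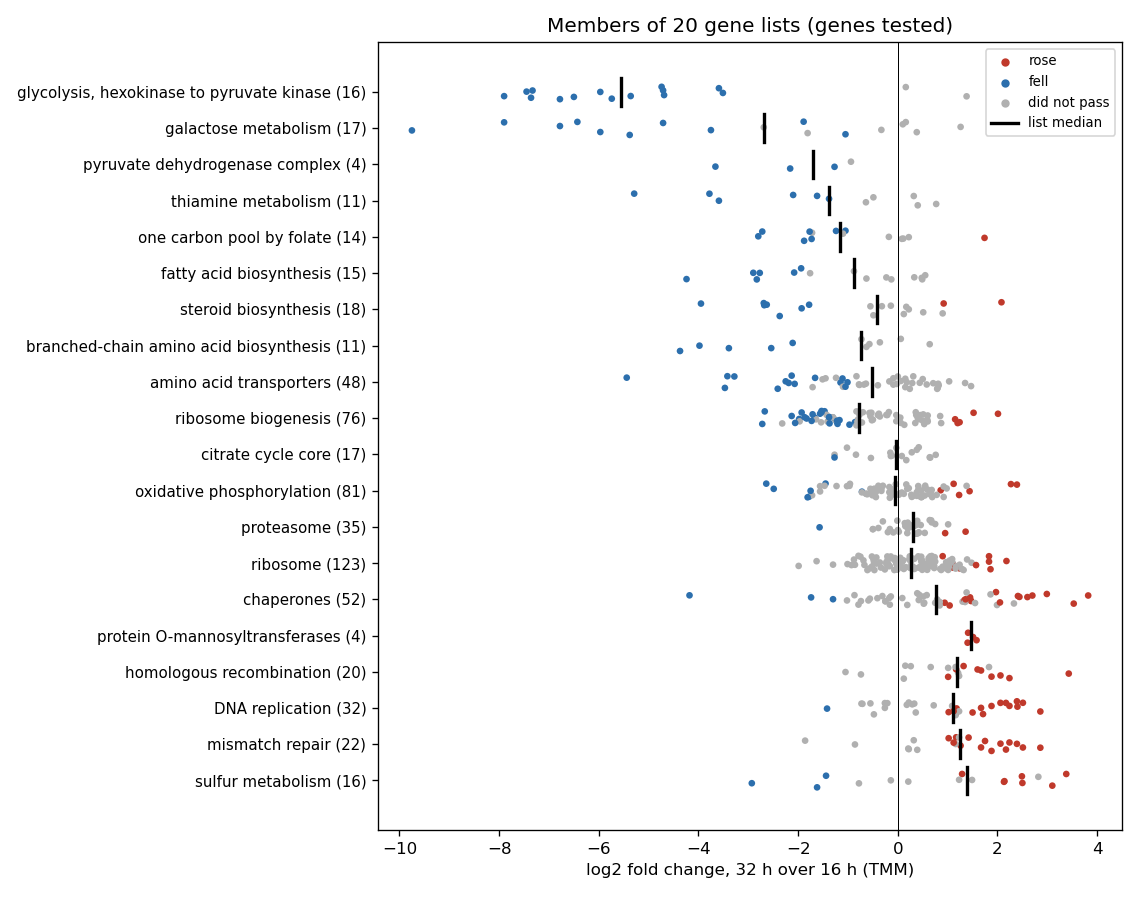
Log2 fold change of every tested member of 20 gene lists, 32 h over 16 h with TMM scaling, coloured by the edgeR call at adjusted p under 0.05, with the list median as a bar and the number of genes in brackets. Glycolysis has its median at -5.55, ribosome biogenesis at -0.78, ribosome at 0.27, DNA replication at 1.10, homologous recombination at 1.19 and mismatch repair at 1.25.

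Genes that load and run the replication fork were among the risen. Replication factor C sets the sliding clamp on DNA, and of its 5 subunit genes 5 rose, 0 fell and 0 did not pass. The replication factor C list had a median log2 change of 2.39 with TMM and 3.57 with library size scaling, where 5 rose and 0 fell. RFC1 had 4.62, 5.63 and 10.6 CPM at 32 h, against 2.05, 1.10 and 1.505 CPM at 16 h. RFC1 rose by 2.17 log2 units (SE 0.38, edgeR adjusted p = 0.000876). RFC3 had 4.31, 3.95 and 4.79 CPM at 32 h, against 0.147, 1.10 and 0.976 CPM at 16 h. RFC3 rose by 2.51 log2 units (SE 0.51, edgeR adjusted p = 0.00212). RFC2 had 2.86, 2.86 and 3.82 CPM at 32 h, against 0.366, 0.194 and 0.692 CPM at 16 h. RFC2 rose by 2.86 log2 units (SE 0.47, edgeR adjusted p = 0.000519), and the log2 fold change was 3.50 without 16 h replicate 3. Levels of these genes were low, up to 10.6 CPM, with every 32 h value above the floor of 3 counts. RFC5, whose change was smallest, had 5.92, 6.57 and 10.2 CPM at 32 h, against 3.22, 4.39 and 3.58 CPM at 16 h. RFC5 rose by 1.02 log2 units (SE 0.35, edgeR adjusted p = 0.0382, and not called at 0.87 without 16 h replicate 2 and 32 h replicate 3), and the call ended without 16 h replicate 1 (0.93), 16 h replicate 3 (0.99), 32 h replicate 2 (1.11) and 32 h replicate 3 (0.74). POL3, the catalytic subunit of DNA polymerase delta, had 9.92, 14.3 and 19.4 CPM at 32 h, against 2.42, 4.32 and 3.70 CPM at 16 h. POL3 rose by 2.06 log2 units (SE 0.36, edgeR adjusted p = 0.000783). RFA1, of the protein that binds unpaired strands, had 41.7, 57.2 and 57.3 CPM at 32 h, against 13.8, 8.84 and 19.8 CPM at 16 h. RFA1 rose by 1.88 log2 units (SE 0.31, edgeR adjusted p = 0.000583). The replication list of 32 genes gave 15 risen, 1 fallen and 16 that did not pass. The DNA replication list had a median log2 change of 1.10 with TMM and 2.21 with library size scaling, where 22 rose and 0 fell. For the DNA replication list counts moved to 0 fallen without 16 h replicate 3. Its fallen member MCM7, of the helicase, had 5.77, 5.80 and 6.81 CPM at 32 h, against 16.9, 7.94 and 24.3 CPM at 16 h. MCM7 fell by 1.42 log2 units (SE 0.37, edgeR adjusted p = 0.0101, not called with library size scaling at -0.23), and the call ended without 16 h replicate 3 (-1.01).

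Repair lists share the fork genes with replication and also held more risen than fallen genes under both scalings. RAD52, central to homologous recombination, had 147, 120.5 and 78.7 CPM at 32 h, against 11.9, 9.68 and 10.5 CPM at 16 h. RAD52 rose by 3.43 log2 units (SE 0.37, edgeR adjusted p = 3.62e-05). Its relative RAD59 had 45.6, 37.0 and 43.3 CPM at 32 h, against 24.5, 10.1 and 15.8 CPM at 16 h. RAD59 rose by 1.32 log2 units (SE 0.31, edgeR adjusted p = 0.00572). RAD23, which recognises damage in nucleotide excision repair, had 492, 378 and 319.8 CPM at 32 h, against 116, 93.6 and 81.0 CPM at 16 h. RAD23 rose by 2.03 log2 units (SE 0.34, edgeR adjusted p = 0.000591). In contrast TFB1, a subunit of the general factor TFIIH, had 46.6, 38.4 and 45.3 CPM at 32 h, against 281, 305 and 251 CPM at 16 h. TFB1 fell by 2.68 log2 units (SE 0.43, edgeR adjusted p = 0.000508). Mismatch repair gave 14 risen, 0 fallen and 8 that did not pass over 22 genes. The mismatch repair list had a median log2 change of 1.25 with TMM and 2.30 with library size scaling, where 19 rose and 0 fell. For the mismatch repair list counts moved to 2 fallen without 32 h replicate 3. Homologous recombination, with 20 genes, gave 9 risen, 0 fallen and 11 that did not pass. The homologous recombination list had a median log2 change of 1.19 with TMM and 2.23 with library size scaling, where 16 rose and 0 fell. Of 50 genes of nucleotide excision repair, 16 rose, 3 fell and 31 did not pass. The nucleotide excision repair list had a median log2 change of 0.39 with TMM and 1.53 with library size scaling, where 34 rose and 1 fell. For the nucleotide excision repair list counts moved to 6 fallen without 16 h replicate 2. Members shared by lists are counted in each, so the lists are not independent of each other.

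Genes of the anaphase-promoting complex and the checkpoint genes MAD2 and BUB1 were also among the risen. The anaphase-promoting complex is the ubiquitin ligase that triggers chromosome separation. Its subunit gene DOC1 had 18.8, 18.6 and 18.3 CPM at 32 h, against 1.10, 2.65 and 1.67 CPM at 16 h. DOC1 rose by 3.36 log2 units (SE 0.34, edgeR adjusted p = 2.23e-05). APC11 had 22.8, 14.0 and 19.9 CPM at 32 h, against 3.15, 1.16 and 2.36 CPM at 16 h. APC11 rose by 3.09 log2 units (SE 0.50, edgeR adjusted p = 0.000519). CDC27 had 95.1, 91.2 and 65.0 CPM at 32 h, against 15.8, 37.2 and 17.3 CPM at 16 h. CDC27 rose by 1.84 log2 units (SE 0.35, edgeR adjusted p = 0.00154). Over 10 genes of the complex, 5 rose, 0 fell and 5 did not pass. The anaphase-promoting complex list had a median log2 change of 1.20 with TMM and 2.23 with library size scaling, where 9 rose and 0 fell. For the anaphase-promoting complex list counts moved to 3 risen without 16 h replicate 3. CDC16 had 56.2, 57.2 and 22.4 CPM at 32 h, against 2.93, 18.01 and 3.54 CPM at 16 h. CDC16 rose by 2.47 log2 units (SE 0.68, edgeR adjusted p = 0.0134), and the call ended without 16 h replicate 3 (2.11) and the log2 fold change was 3.80 without 16 h replicate 2. The checkpoint genes MAD2 and BUB1 delay that step, and MAD2 had 3.01, 3.71 and 4.35 CPM at 32 h, against 1.03, 0.710 and 0.570 CPM at 16 h. MAD2 rose by 2.28 log2 units (SE 0.42, edgeR adjusted p = 0.00121). BUB1 had 10.03, 11.1 and 9.22 CPM at 32 h, against 1.54, 4.20 and 1.95 CPM at 16 h. BUB1 rose by 1.98 log2 units (SE 0.36, edgeR adjusted p = 0.00107). YCG1, of condensin, had 3.17, 3.95 and 4.26 CPM at 32 h, against 0.366, 1.42 and 0.732 CPM at 16 h. YCG1 rose by 2.17 log2 units (SE 0.44, edgeR adjusted p = 0.00215). CDC28, the cyclin-dependent kinase, had 5.77, 5.39 and 9.91 CPM at 32 h, against 2.79, 1.03 and 2.93 CPM at 16 h. CDC28 rose by 1.64 log2 units (SE 0.41, edgeR adjusted p = 0.00780). A cyclin B gene, WICANDRAFT_31360, had 57.1, 41.1 and 91.8 CPM at 32 h, against 3.96, 4.13 and 3.74 CPM at 16 h, and in all of these genes the 32 h libraries lay above the 16 h libraries. WICANDRAFT_31360 rose by 4.0 log2 units (SE 0.42, edgeR adjusted p = 2.53e-05).

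Septins, which form the ring at the bud neck, were looked at after their values had been seen. CDC10 had 8.16, 15.4 and 12.1 CPM at 32 h, against 2.42, 1.29 and 1.59 CPM at 16 h. CDC10 rose by 2.76 log2 units (SE 0.38, edgeR adjusted p = 0.000170). CDC11 had 9.09, 12.3 and 12.4 CPM at 32 h, against 2.35, 1.68 and 1.505 CPM at 16 h. CDC11 rose by 2.62 log2 units (SE 0.33, edgeR adjusted p = 8.65e-05). CDC12 had 2.86, 3.18 and 7.81 CPM at 32 h, against 2.64, 1.35 and 1.75 CPM at 16 h. CDC12 rose by 1.28 log2 units (SE 0.46, edgeR adjusted p = 0.0464, and not called at 0.48 without 16 h replicate 2 and 32 h replicate 3), and the call ended without 16 h replicate 2 (1.09), 16 h replicate 3 (1.22) and 32 h replicate 3 (0.67). Over 7 septin genes, 3 rose, 1 fell and 3 did not pass. The septins list had a median log2 change of 1.01 with TMM and 2.24 with library size scaling, where 5 rose and 0 fell. For the septins list counts moved to 0 fallen without 16 h replicate 3, 32 h replicate 1 or 32 h replicate 2 and 2 fallen without 32 h replicate 3. The G1 cyclin CLN3 and the cohesin gene MCD1 stood on the other side. CLN3 had 0.260, 0.295 and 3.46 CPM at 32 h, against 16.4, 1.29 and 24.7 CPM at 16 h, and its groups overlapped. CLN3 fell by 3.36 log2 units (SE 1.15, edgeR adjusted p = 0.0381, not called with library size scaling at -2.04), and the call ended without 16 h replicate 1 (-3.25), 16 h replicate 3 (-2.68), 32 h replicate 1 (-2.89) and 32 h replicate 2 (-2.89) and the log2 fold change was -5.64 without 32 h replicate 3. MCD1 had 0.260, 0.442 and 0.360 CPM at 32 h, against 4.10, 0.323 and 5.82 CPM at 16 h, its groups overlapped, and the log2 fold change was -2.59 without 16 h replicate 3. MCD1 fell by 3.24 log2 units (SE 0.82, edgeR adjusted p = 0.00835, not called with library size scaling at -2.01). The KEGG cell cycle of yeast, with 92 genes, gave 30 risen, 11 fallen and 51 that did not pass. The cell cycle of yeast list had a median log2 change of 0.48 with TMM and 1.68 with library size scaling, where 58 rose and 0 fell. For the cell cycle of yeast list counts moved to 7 fallen without 32 h replicate 1 and 6 fallen without 32 h replicate 2.

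**Figure D4:**
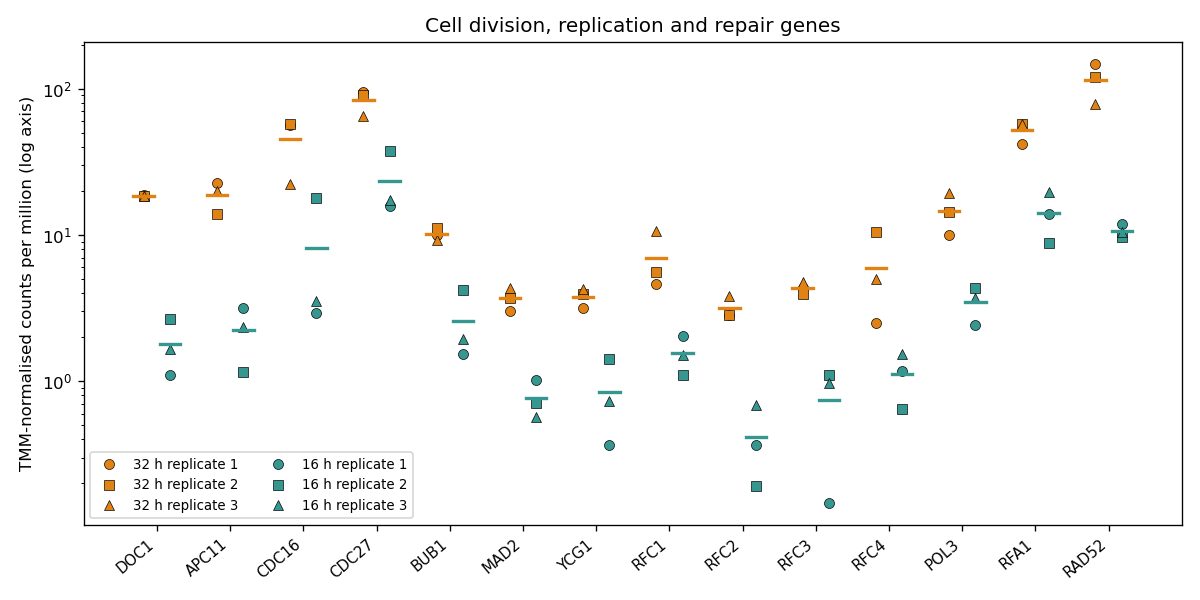
TMM-normalised CPM on a log axis in the 32 h libraries (orange, left of each pair) and the 16 h libraries (green, right) for genes of the anaphase-promoting complex, spindle checkpoint, condensin, replication and repair. Symbols mark replicates 1 to 3, bars group means. Only chosen risen genes are drawn, each with every 32 h value above every 16 h value.

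The core histone genes named here fell and the linker histone gene rose, under both scalings. HTB2, histone H2B, had 9.92, 5.80 and 6.62 CPM at 32 h, against 476, 85.4 and 189 CPM at 16 h. HTB2 fell by 5.07 log2 units (SE 0.80, edgeR adjusted p = 0.000437), and the log2 fold change was -4.21 without 16 h replicate 1. HTA2, histone H2A, had 11.3, 10.2 and 10.8 CPM at 32 h, against 277, 106 and 192 CPM at 16 h. HTA2 fell by 4.15 log2 units (SE 0.52, edgeR adjusted p = 8.15e-05). HHT2, histone H3, had 33.8, 23.1 and 60.0 CPM at 32 h, against 406, 119 and 244 CPM at 16 h. HHT2 fell by 2.72 log2 units (SE 0.59, edgeR adjusted p = 0.00334). In contrast the linker histone gene HHO1 had 436, 263 and 777 CPM at 32 h, against 88.5, 22.2 and 42.9 CPM at 16 h. HHO1 rose by 3.26 log2 units (SE 0.68, edgeR adjusted p = 0.00265), and the log2 fold change was 3.92 without 16 h replicate 1. The groups did not overlap in any of these histone genes. Core histone transcripts of many eukaryotes lack a poly(A) tail, while those of yeasts carry one. Among chromatin factors, RSC4 of the RSC remodelling complex had 15.3, 17.9 and 13.0 CPM at 32 h, against 2.12, 4.20 and 2.89 CPM at 16 h. RSC4 rose by 2.33 log2 units (SE 0.31, edgeR adjusted p = 0.000139). FUN30, an ATPase of DNA end processing, had 67.9, 52.9 and 10.6 CPM at 32 h, against 2.64, 3.74 and 2.52 CPM at 16 h. FUN30 rose by 3.88 log2 units (SE 0.94, edgeR adjusted p = 0.00687). These chromatin genes were chosen after their values had been seen, except FUN30, which was among the 10 largest rises.

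Chaperone genes rose in part, with wide spread. HSP82, the HSP90 chaperone, had 4271, 2471 and 898 CPM at 32 h, against 117, 295 and 128 CPM at 16 h. HSP82 rose by 3.82 log2 units (SE 0.91, edgeR adjusted p = 0.00629). KAR2, the HSP70 of the endoplasmic reticulum, had 55.9, 54.1 and 62.1 CPM at 32 h, against 9.67, 6.52 and 16.1 CPM at 16 h. KAR2 rose by 2.41 log2 units (SE 0.37, edgeR adjusted p = 0.000362). MDJ1, a mitochondrial co-chaperone, had 180.1, 163 and 88.0 CPM at 32 h, against 15.9, 24.0 and 14.2 CPM at 16 h. MDJ1 rose by 2.99 log2 units (SE 0.65, edgeR adjusted p = 0.00331). HSP26, a small heat shock protein, had 23870, 24220 and 6238 CPM at 32 h, against 2071, 1142 and 1503 CPM at 16 h. HSP26 rose by 3.53 log2 units (SE 1.05, edgeR adjusted p = 0.0201), and the call ended without 16 h replicate 3 (3.49), 32 h replicate 1 (3.31) and 32 h replicate 2 (3.26). The HSP110 gene WICANDRAFT_75947 fell, with 0.624, 0.501 and 2.27 CPM at 32 h, against 21.8, 14.3 and 26.6 CPM at 16 h. WICANDRAFT_75947 fell by 4.18 log2 units (SE 0.87, edgeR adjusted p = 0.00262), and the log2 fold change was -5.22 without 32 h replicate 3. Over 52 chaperone genes, 16 rose, 3 fell and 33 did not pass. The chaperones list had a median log2 change of 0.77 with TMM and 1.86 with library size scaling, where 34 rose and 1 fell. For the chaperones list counts moved to 9 risen without 16 h replicate 1, 7 risen without 16 h replicate 3 or 32 h replicate 2 and 6 risen without 32 h replicate 1. The ring that folds actin and tubulin had 4 risen, 0 fallen and 4 that did not pass over 8 genes. The chaperonin TCP-1 ring list had a median log2 change of 1.17 with TMM and 2.21 with library size scaling, where 7 rose and 0 fell. For the chaperonin TCP-1 ring list counts moved to 2 risen without 16 h replicate 1, 16 h replicate 3, 32 h replicate 1 or 32 h replicate 2. Its member CCT5 had 21.6, 24.9 and 29.2 CPM at 32 h, against 6.08, 11.9 and 9.32 CPM at 16 h. CCT5 rose by 1.47 log2 units (SE 0.28, edgeR adjusted p = 0.00152).

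In the secretory route, protein O-mannosyltransferases start the sugar chains of cell wall proteins, and of 4 genes 4 rose, 0 fell and 0 did not pass. The protein O-mannosyltransferases list had a median log2 change of 1.46 with TMM and 2.64 with library size scaling, where 4 rose and 0 fell. For the protein O-mannosyltransferases list counts moved to 1 risen without 16 h replicate 1 or 32 h replicate 3. PMT4 had 48.3, 51.0 and 81.0 CPM at 32 h, against 22.0, 18.5 and 19.7 CPM at 16 h. PMT4 rose by 1.58 log2 units (SE 0.31, edgeR adjusted p = 0.00172). PMT1 had 91.7, 94.9 and 159 CPM at 32 h, against 36.3, 67.4 and 26.9 CPM at 16 h. PMT1 rose by 1.40 log2 units (SE 0.46, edgeR adjusted p = 0.0301). For PMT1, the call ended without 16 h replicate 1 (1.29), 16 h replicate 3 (1.15) and 32 h replicate 3 (1.10). DPM1, which makes the mannose donor of these enzymes, had 113, 72.3 and 178 CPM at 32 h, against 31.6, 6.91 and 15.1 CPM at 16 h. DPM1 rose by 2.76 log2 units (SE 0.66, edgeR adjusted p = 0.00645), and the log2 fold change was 3.45 without 16 h replicate 1. Of 29 N-glycan genes, 5 rose, 0 fell and 24 did not pass. The N-glycan biosynthesis list had a median log2 change of 0.16 with TMM and 1.34 with library size scaling, where 19 rose and 0 fell. For the N-glycan biosynthesis list counts moved to 2 risen without 16 h replicate 1 or 32 h replicate 3. The list of protein processing in the endoplasmic reticulum, with 86 genes, gave 22 risen, 9 fallen and 55 that did not pass. The protein processing in the ER list had a median log2 change of 0.43 with TMM and 1.61 with library size scaling, where 57 rose and 4 fell. For the protein processing in the ER list counts moved to 13 risen without 16 h replicate 1, 14 risen without 16 h replicate 3 or 32 h replicate 2, 3 fallen without 32 h replicate 1 and 4 fallen without 32 h replicate 2. DSK2, a shuttle of ubiquitinated proteins, had 2604, 1880 and 1197 CPM at 32 h, against 482, 478 and 259 CPM at 16 h. DSK2 rose by 2.22 log2 units (SE 0.46, edgeR adjusted p = 0.00240). Ubiquitin-mediated proteolysis gave 13 risen, 5 fallen and 31 that did not pass over 49 genes. The ubiquitin mediated proteolysis list had a median log2 change of 0.17 with TMM and 1.31 with library size scaling, where 33 rose and 2 fell. For the ubiquitin mediated proteolysis list counts moved to 7 risen without 16 h replicate 3. Proteasome subunits gave 2 risen, 1 fallen and 32 that did not pass over 35 genes, with RPN1 of the base at 390.1, 333 and 258 CPM at 32 h, against 104, 179 and 98.0 CPM at 16 h and RPN7 of the lid at 8.94, 15.8 and 18.2 CPM at 32 h, against 38.6, 55.4 and 33.8 CPM at 16 h. RPN1 rose by 1.36 log2 units (SE 0.34, edgeR adjusted p = 0.00806). RPN7 fell by 1.57 log2 units (SE 0.37, edgeR adjusted p = 0.00561, not called with library size scaling at -0.37). The proteasome list had a median log2 change of 0.31 with TMM and 1.44 with library size scaling, where 28 rose and 0 fell. For the proteasome list counts moved to 4 risen without 16 h replicate 2 and 1 risen without 16 h replicate 3, 32 h replicate 1 or 32 h replicate 2.

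Genes with a cell wall location in GO were more often fallen than risen with TMM and more often risen with library size scaling. Of 115 genes, 9 rose, 41 fell and 65 did not pass. The cell wall list had a median log2 change of -0.89 with TMM and 0.38 with library size scaling, where 32 rose and 17 fell. That list holds glycolytic genes such as TPI1 and GPM1, which carry a cell wall annotation beside their cytosolic role. GAS3, of a family that elongates glucan, had 368, 286 and 311 CPM at 32 h, against 84.2, 21.1 and 50.1 CPM at 16 h. GAS3 rose by 2.64 log2 units (SE 0.45, edgeR adjusted p = 0.000660). CWP2 and CCW12, cell wall proteins among the 5 genes with the most counts at 32 h, did not pass. CWP2 had 61860, 38390 and 33560 CPM at 32 h, against 64410, 91040 and 21140 CPM at 16 h. CWP2 had a log2 fold change of -0.40 (SE 0.68, edgeR adjusted p = 0.686). CCW12 had 71230, 39850 and 19990 CPM at 32 h, against 45090, 71230 and 17690 CPM at 16 h. CCW12 had a log2 fold change of -0.03 (SE 0.62, edgeR adjusted p = 0.974). The spread within each group was wide in both, and the groups overlapped.

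Of the signalling genes named here, SNF1, TPK3 and SKS1 fell with TMM scaling, while BCK1 and OPY2 rose. SNF1, the kinase that releases glucose repression, had 23.2, 29.4 and 36.6 CPM at 32 h, against 62.1, 96.0 and 85.8 CPM at 16 h. SNF1 fell by 1.45 log2 units (SE 0.34, edgeR adjusted p = 0.00526, not called with library size scaling at -0.30). TPK3, a catalytic subunit of the cyclic AMP-dependent kinase, had 11.3, 11.0 and 12.8 CPM at 32 h, against 50.0, 20.1 and 46.6 CPM at 16 h. TPK3 fell by 1.73 log2 units (SE 0.32, edgeR adjusted p = 0.00111, not called with library size scaling at -0.49). SKS1, a kinase of growth at low glucose, had 1.72, 1.94 and 8.14 CPM at 32 h, against 313, 26.2 and 299 CPM at 16 h. SKS1 fell by 5.74 log2 units (SE 1.26, edgeR adjusted p = 0.00357), and the log2 fold change was -6.85 without 32 h replicate 3. BCK1, of the cell wall integrity cascade, had 82.8, 91.3 and 76.0 CPM at 32 h, against 19.9, 32.1 and 18.6 CPM at 16 h. BCK1 rose by 1.82 log2 units (SE 0.27, edgeR adjusted p = 0.000292). OPY2, a membrane anchor of the osmosensing cascade, had 227, 159.5 and 63.0 CPM at 32 h, against 15.3, 18.7 and 11.4 CPM at 16 h. OPY2 rose by 3.30 log2 units (SE 0.54, edgeR adjusted p = 0.000525). The groups did not overlap in these genes. Over 91 protein kinase genes, 13 rose, 22 fell and 56 did not pass. The protein kinases list had a median log2 change of -0.01 with TMM and 1.21 with library size scaling, where 38 rose and 6 fell. For the protein kinases list counts moved to 21 risen without 16 h replicate 2, 6 risen without 16 h replicate 3, 8 risen without 32 h replicate 1, 14 fallen without 16 h replicate 1 or 32 h replicate 1 and 13 fallen without 16 h replicate 3 or 32 h replicate 2. The MAPK list of 90 genes gave 14 risen, 11 fallen and 65 that did not pass. Those shares of 15.6% risen and 12.2% fallen stood beside 14.1% and 17.7% over all genes. The MAPK signalling of yeast list had a median log2 change of -0.11 with TMM and 1.15 with library size scaling, where 37 rose and 3 fell. For the MAPK signalling of yeast list counts moved to 22 risen without 16 h replicate 2, 9 risen without 32 h replicate 2, 6 fallen without 16 h replicate 1 or 16 h replicate 3, 3 fallen without 32 h replicate 1 and 4 fallen without 32 h replicate 2.

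A gene annotated as homeobox factor SIP1, WICANDRAFT_78559, had the smallest adjusted p among the 10 largest falls, with 2.03, 2.18 and 3.57 CPM at 32 h, against 561, 533 and 481 CPM at 16 h. WICANDRAFT_78559 fell by 7.65 log2 units (SE 0.56, edgeR adjusted p = 2.56e-06). Its 16 h values lay within 481 to 561 CPM, replicate 2 included. Among 9 genes with this description, 1 rose, 3 fell and 5 did not pass. The SIP1 family list had a median log2 change of -0.70 with TMM and 0.44 with library size scaling, where 1 rose and 2 fell. The risen one, WICANDRAFT_97226, had 81.0, 85.7 and 54.2 CPM at 32 h, against 23.4, 6.78 and 20.9 CPM at 16 h. WICANDRAFT_97226 rose by 2.11 log2 units (SE 0.44, edgeR adjusted p = 0.00268). Of 1427 tested genes with no symbol, KOG, KEGG entry or description, 198 rose and 243 fell with TMM, near the shares over all genes. Among these, WICANDRAFT_67202 had 566, 678 and 722 CPM at 32 h, against 33.2, 12.7 and 27.1 CPM at 16 h. WICANDRAFT_67202 rose by 4.75 log2 units (SE 0.44, edgeR adjusted p = 1.06e-05). WICANDRAFT_18578 had 7000, 4478 and 4902 CPM at 32 h, against 637, 542 and 329 CPM at 16 h. WICANDRAFT_18578 rose by 3.44 log2 units (SE 0.49, edgeR adjusted p = 0.000223). WICANDRAFT_84597 had 0.572, 0.677 and 0.637 CPM at 32 h, against 76.0, 75.2 and 95.2 CPM at 16 h. WICANDRAFT_84597 fell by 7.01 log2 units (SE 0.43, edgeR adjusted p = 3.99e-07). The annotation gives them no role.

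The largest changes also included these annotated genes. The membrane protein gene WICANDRAFT_38748 had 63.1, 51.9 and 5.48 CPM at 32 h, against 1.91, 1.16 and 2.28 CPM at 16 h. WICANDRAFT_38748 rose by 4.48 log2 units (SE 0.74, edgeR adjusted p = 0.000571). The methyltransferase gene WICANDRAFT_86031 had 185, 126 and 27.6 CPM at 32 h, against 3.37, 14.3 and 3.01 CPM at 16 h. WICANDRAFT_86031 rose by 4.03 log2 units (SE 0.82, edgeR adjusted p = 0.00222), and the log2 fold change was 5.14 without 16 h replicate 2. The reductase gene WICANDRAFT_88497, described as of broad substrate range, had 93.5, 76.8 and 304 CPM at 32 h, against 14.2, 7.10 and 9.64 CPM at 16 h. WICANDRAFT_88497 rose by 3.94 log2 units (SE 0.64, edgeR adjusted p = 0.000518), and the log2 fold change was 3.05 without 32 h replicate 3. On the fallen side, the gene WICANDRAFT_77374, of the haloacid-halidohydrolase family, had 7.79, 10.2 and 24.0 CPM at 32 h, against 4320, 548 and 4188 CPM at 16 h. WICANDRAFT_77374 fell by 7.75 log2 units (SE 1.07, edgeR adjusted p = 0.000168), and the log2 fold change was -8.38 without 32 h replicate 3. The major facilitator gene WICANDRAFT_63188 had 6.39, 5.95 and 22.1 CPM at 32 h, against 3162, 224 and 3936 CPM at 16 h. WICANDRAFT_63188 fell by 7.73 log2 units (SE 1.24, edgeR adjusted p = 0.000474), and the log2 fold change was -8.63 without 32 h replicate 3. The rule for naming them excluded overlap. Of the 5 genes with the most counts at 32 h, none passed. Beside CWP2, CCW12 and ADH3 these were HSP30 and WICANDRAFT_83923. HSP30, known in Saccharomyces cerevisiae as a stress protein of the plasma membrane, had 24590, 16930 and 15870 CPM at 32 h, against 33360, 32800 and 14580 CPM at 16 h. HSP30 had a log2 fold change of -0.49 (SE 0.54, edgeR adjusted p = 0.516). The gene WICANDRAFT_83923 carries a cell wall term and had 24230, 11590 and 39810 CPM at 32 h, against 84310, 2811 and 30240 CPM at 16 h. WICANDRAFT_83923 had a log2 fold change of -0.63 (SE 1.03, edgeR adjusted p = 0.672). All 5 genes with the most counts at 16 h fell, and they were the glyceraldehyde 3-phosphate dehydrogenase gene, enolase, THI4, the hexose transporter gene and PGK1.

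GO terms gave larger counts. Of 238 genes of DNA repair, 64 rose (26.9%), 24 fell (10.1%) and 150 did not pass. Their median log2 change was 0.39 with TMM and 1.52 with library size scaling, where 136 rose and 9 fell. The mitotic cell cycle, with 328 genes, gave 83 risen (25.3%), 39 fallen (11.9%) and 206 that did not pass. Its median log2 change was 0.42 with TMM and 1.52 with library size scaling, where 183 rose and 11 fell. Its counts moved to 23 fallen without 32 h replicate 1. In the nucleolus, where ribosomes are assembled, 13 rose (4.69%), 66 fell (23.8%) and 198 did not pass of 277 genes. The nucleolus list had a median log2 change of -0.53 with TMM and 0.66 with library size scaling, where 66 rose and 6 fell. For the nucleolus list counts moved to 7 risen without 16 h replicate 1 or 32 h replicate 1, 6 risen without 16 h replicate 3, 5 risen without 32 h replicate 2, 40 fallen without 32 h replicate 1 and 39 fallen without 32 h replicate 2. At the plasma membrane, 58 rose (12.3%), 134 fell (28.4%) and 280 did not pass of 472 genes. The plasma membrane list had a median log2 change of -0.32 with TMM and 0.90 with library size scaling, where 171 rose and 41 fell. For the plasma membrane list counts moved to 36 risen without 16 h replicate 3, 38 risen without 32 h replicate 1 and 87 fallen without 32 h replicate 1. For the mitochondrion, with 1037 genes, 145 rose, 192 fell and 700 did not pass, and its shares of 14.0% risen and 18.5% fallen stood beside 14.1% and 17.7% over all genes. The mitochondrion list had a median log2 change of -0.01 with TMM and 1.16 with library size scaling, where 500 rose and 53 fell. For the mitochondrion list counts moved to 81 risen without 16 h replicate 3, 83 risen without 32 h replicate 1, 82 risen without 32 h replicate 2, 118 fallen without 32 h replicate 1 and 120 fallen without 32 h replicate 2. Response to heat, with 80 genes, gave 17 risen, 16 fallen and 47 that did not pass. The response to heat list had a median log2 change of 0.11 with TMM and 1.22 with library size scaling, where 39 rose and 2 fell. For the response to heat list counts moved to 9 risen without 16 h replicate 1, 16 h replicate 3 or 32 h replicate 2, 11 risen without 32 h replicate 1, 9 fallen without 16 h replicate 1, 6 fallen without 32 h replicate 1 and 7 fallen without 32 h replicate 2.

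The libraries that stood apart lay towards the other time point in many called genes. Of the 1118 fallen genes, 32 h replicate 3 was the highest 32 h library in 647 (57.9%, against 43.7% of all genes tested) and 16 h replicate 2 the lowest 16 h library in 617 (55.2%, against 41.7%). Of the 889 risen genes, 32 h replicate 3 was the lowest of its group in 482 (54.2%, against 42.3% of all genes tested) and 16 h replicate 2 the highest of its group in 488 (54.9%, against 44.8%). Those differences in share were not tested. Leaving out 32 h replicate 3 gave 823 risen and 1093 fallen genes, and leaving out 16 h replicate 2 gave 1238 and 1344. With both left out, a choice made after the data were seen, 1291 rose and 1462 fell, and 765 of the 889 and 958 of the 1118 were among them. Of the genes named here, 3 lost and 5 gained a call in that fit, as given beside each. In every fit that left out any of the 6 compared libraries, 457 of the risen and 603 of the fallen genes were called again. What set these libraries apart was not tested.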

How the data were processed

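The authors deposited raw read counts per gene, whole numbers with no normalisation, for all 15 libraries. Per the submitters' processing notes the tools were fastp, HISAT2 and HTSeq. Their versions, the counting mode, the use of strand and the genome build are not given in the sources used here, so reads shared by paralogs or antisense genes could not be assessed and no coordinates are given. All 6571 genes matched RefSeq locus tags, which gave 3433 symbols.

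Counts were analysed with edgeR 4.0.16 in R 4.3.3. filterByExpr kept 6327 genes (244 left out), libraries were scaled by TMM, and glmQLFit with a mean per time point was fitted to all 15 libraries (residual degrees of freedom 10, common BCV, the biological coefficient of variation, 0.418). The contrast was 32 h minus 16 h, adjusted by Benjamini-Hochberg over all genes tested, at 0.05. SE was taken as the absolute log2 fold change over the root of the quasi-likelihood F, an approximation. CPM is per 1000000 counts of the TMM-scaled library. The test was checked on simulated counts.

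The comparison and the gene lists were chosen with earlier results of these data known. Genes named are the 10 largest rises and falls among called genes that carry an annotation, do not overlap between groups and average 20 CPM or more where higher, up to 4 called members per direction of each list, pathway members in order, and the 5 genes with the most counts in each group. Named outside that rule, after their values were seen, were the neutral trehalase gene, TPS1, COX15, ADE12, GUA1, LEU2, NOG2, CDC27, RFC5, RAD23, RAD59, CDC28, YCG1, MAD2, SNF1, KAR2, DSK2, STL1, AGP2, the pyruvate decarboxylase gene, the 3 genes with no annotation, GAS3, MET31, the septins, the chromatin genes other than FUN30 and the risen SIP1 gene. Alternatives were median-of-ratios and library size scaling, DESeq2 1.42.0, limma-voom (limma 3.58.1), other filters, a minimum change of 1.5-fold, the 6 libraries alone, the replicate block, and each library left out in turn.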

Additional observations from a re-analysis of the deposited data

How the results depend on the processing

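The main counts were 889 risen and 1118 fallen genes. Library size scaling gave 2809 and 285 and moved the median of all genes to 1.10, the 6 compared libraries alone 537 and 690, and a minimum change of 1.5-fold 511 and 738. Leaving out each of the 6 libraries in turn gave 558 to 1238 risen genes (the fewest with 16 h replicate 3 left out, and 590 if 32 h replicate 2 was) and 671 to 1344 fallen genes (the fewest with 32 h replicate 1 left out, and 689 if 32 h replicate 2 was). Dropping 16 h replicate 2 and 64 h replicate 3 together, 1445 rose and 1526 fell. Median-of-ratios scaling (877 and 1130), DESeq2 (1052 and 1338), limma-voom (908 and 941), no low-count filter (886 and 1115) and a mean of at least 10 CPM (693 and 785) stayed within 1.5 times. The cause of these shifts was not tested. By design, fewer genes are tested under the stricter filter and the 6-library fit has fewer samples.

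Pairing by number was open, as signs differed: deviations of same-numbered libraries correlated at -0.16, 0.453 and 0.474 across 4453 genes. Only 32 h replicate 1 had a better match, 16 h replicate 2 (0.356). With the number as a replicate block, 762 genes rose and 921 fell.

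Of 173 genes named, none changed sign as a called gene under any alternative run. Calls were lost by 22 with library size scaling, 9 in the 6-library fit, 6 with the 1.5-fold minimum, 4 with limma-voom, 1 with the replicate block (CDC12), 1 to 11 when 1 library was left out, 3 (5 gained) without 16 h replicate 2 and 32 h replicate 3, and 1 (4 gained) without 16 h replicate 2 and 64 h replicate 3. Counting limits the lowest values: RFC3 had 0.147 CPM in 16 h replicate 1, below the floor of 3 counts there (0.220 CPM). WICANDRAFT_35547 lay below the floor in 16 h replicate 2.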
